A study of Mus musculus with 35 samples.

Results

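Livers with chemically induced tumours in which Smyd3 had been lowered were compared with normal livers of untreated mice at day 260, to describe what still differed from normal liver. The mice were taken by their labels alone, 6 mice labelled Smyd3_ASO and 5 labelled Untreated_P260, which are 11 of the 21 mice and 19 of the 35 libraries of the series. All were labelled C57Bl6. The 6 Smyd3-ASO mice received diethylnitrosamine (DEN), a liver carcinogen that hepatocytes turn into a DNA-alkylating agent, as 1 intraperitoneal dose of 25 mg/kg on day 14, and from day 133 a Smyd3 antisense oligonucleotide (ASO, a synthetic strand that base-pairs with an RNA and lowers it), injected intraperitoneally at 50 mg/kg 2 times a week until harvest at day 260. The 6 control-ASO mice had the same DEN dose and the same schedule with a control ASO. The 4 DEN-P133 mice had DEN, no ASO, and were harvested at day 133. The 5 untreated mice had neither DEN nor ASO. The labels call the DEN samples tumours and the untreated samples normal liver, and the share of tumour tissue in a piece of liver is not given in the sources used here. Between Smyd3-ASO and untreated mice the DEN dose, the tumours, the injections and the loss of Smyd3 cannot be told apart. Control-ASO and DEN-P133 values are therefore given beside the results.

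Smyd3 is a lysine methyltransferase of the SET and MYND domain family, known for methylating histone H3 and the kinase MAP3K2, by which it raises signalling through the Ras-MAPK cascade. In that cascade growth factor signals pass through kinases to ERK, which switches on immediate early genes such as Fos and Egr1 within minutes. Normal liver is dominated by hepatocytes, which make most plasma proteins, dispose of ammonia as urea, make bile acids and oxidise drugs and steroids. Tumours of hepatocyte origin often re-express fetal liver genes and lose part of this output.

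RNA was measured with QuantSeq, in which each read comes from the 3′ end of a polyadenylated transcript, so that levels are given per transcript as CPM (counts scaled to a common library size), scaled between mice by the trimmed mean of M values (TMM). Total counts ran from 6358080 to 20258619 in Smyd3-ASO mice and from 10186780 to 13116012 in untreated mice. The 10 most abundant genes held 9.46 to 15.7% of the counts in Smyd3-ASO, 17.3 to 22.9% in control-ASO, 17.4 to 19.1% in DEN-P133 and 24.9 to 32.2% in untreated mice. The hepatocyte markers Alb, Ttr, Apoa1 and Cps1 were abundant in all 21 mice, and the erythroid sum was lower in all 6 Smyd3-ASO mice than in any untreated mouse. Smyd3-ASO mice 3 and 4 and untreated mouse 5 stood apart in inflammation-induced genes. The summed level of acute phase and metallothionein genes was 51212 CPM in Smyd3-ASO mouse 3 and 37929 CPM in mouse 4. It was 4078.5 to 10717 CPM in the other Smyd3-ASO mice. Saa2, an acute phase protein, was at 8739 CPM in Smyd3-ASO mouse 3 and 5023 CPM in Smyd3-ASO mouse 4, against 45.1 to 857 CPM in the other Smyd3-ASO mice. Untreated mouse 5 was at 45847 CPM, against 26.1 to 180.2 CPM in the other untreated mice. The log2 change of Saa2 was -1.91 ± 2.09 (SE; edgeR, adjusted p = 0.478), and 5.00 (edgeR, adjusted p = 0.0432) without untreated mouse 5. Without Smyd3-ASO mouse 3 and untreated mouse 5, 6743 genes passed the threshold in place of 7289. That fit, here and below, keeps Smyd3-ASO mouse 4.

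Below, values of the 6 Smyd3-ASO mice are given as lowest, median and highest, and values of the 5 untreated mice in the order of their numbers. Most genes described were chosen for a small adjusted p or a large change, which favours groups that do not overlap. The share of all genes whose groups did not overlap is not given, so non-overlap describes single genes only. Where nothing is said of overlap, the groups may overlap, as the values show. Changes are log2 ratios of Smyd3-ASO over untreated livers with their standard error (SE), from edgeR's quasi-likelihood fit across 15297 genes, and "rose" or "fell" means a Benjamini-Hochberg adjusted p under 0.05. Of the genes tested, 47.6% passed, 24.4% higher (3734 genes) and 23.2% lower (3555 genes) in Smyd3-ASO livers, and 861 of them were at least 4-fold higher and 486 at least 4-fold lower. Control-ASO livers over the same untreated livers gave 45.9% of genes, 23.7% higher and 22.2% lower. Smyd3-ASO over control-ASO livers gave 26.1%, 13.3% higher and 12.9% lower. These comparisons share mice, so their values are set side by side and not counted as independent. Scaling decided the direction of many moderate changes. With library totals in place of TMM, the median log2 change of all 15297 genes was 0.96 in place of 0.06, and 9515 genes were higher and 898 lower, 91.4% of the calls higher in place of 51.2%. Changes are therefore given relative to the bulk of genes, which TMM centres, and the counts on library totals stand beside those of the groups that were balanced or mostly lower.

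**Figure D1:**
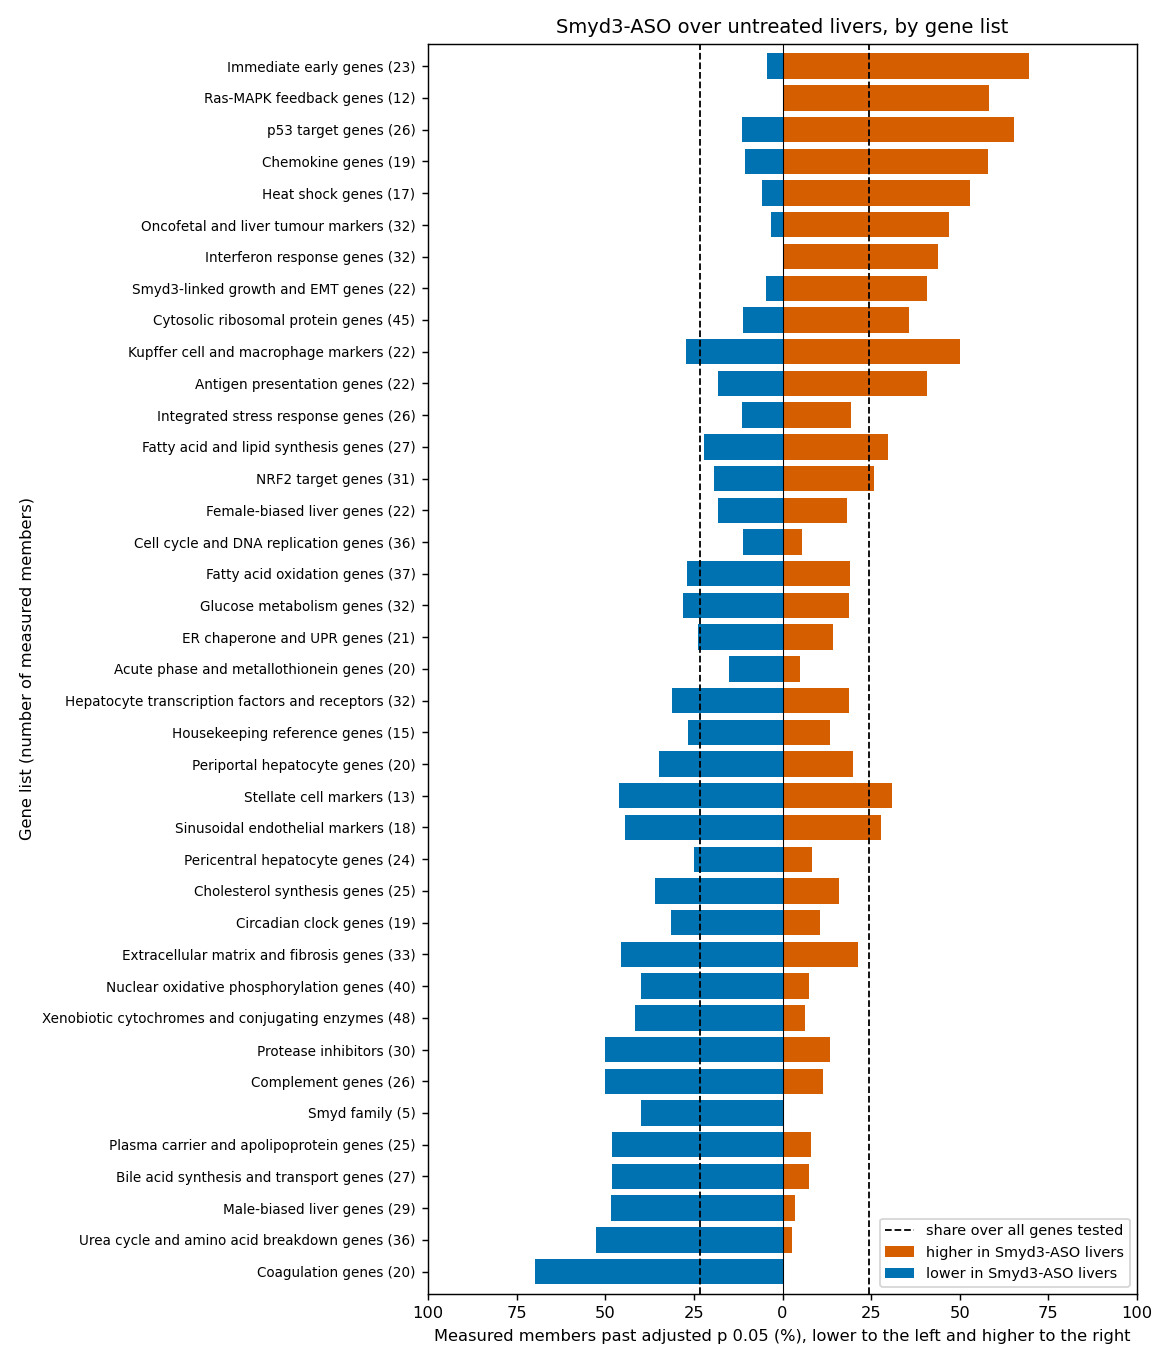
Share of the measured members of each gene list that were higher (right, orange) or lower (left, blue) in Smyd3-ASO than in untreated livers at an adjusted p under 0.05, in percent. The dashed lines mark the shares over all 15297 genes, 24.4% higher and 23.2% lower; immediate early, p53 target and Ras-MAPK genes lie far to the right and coagulation genes far to the left. Lists of which fewer than 80% of the genes passed the filter on low counts are left out.

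Smyd3 stayed low in the livers whose mice had received its ASO. It had 0, 0.245 and 0.757 CPM in Smyd3-ASO livers, against 2.36, 4.73, 3.42, 5.07 and 3.47 CPM in untreated livers, and the groups did not overlap. The log2 change was -3.64 ± 0.53 (SE; edgeR, adjusted p = 0.000105), and an exact two-sided permutation test of the CPM gave p = 0.0021645, the smallest that the 462 splits of 11 mice allow. Control-ASO livers were at 3.11 to 4.63 CPM and DEN-P133 livers at 2.66 to 5.47 CPM. Of the 5 Smyd genes measured, Smyd2, another lysine methyltransferase of the family, was the other one past the threshold, at 4.11, 6.88 and 9.17 CPM in Smyd3-ASO livers, against 11.4, 9.35, 9.18, 8.84 and 9.21 CPM in untreated livers, with overlapping groups. Its log2 change was -0.55 ± 0.21 (SE; edgeR, adjusted p = 0.0465), and the call was lost without any 1 of Smyd3-ASO mice 1, 2, 3 and 4 and untreated mice 1, 2, 3, 4 and 5 (adjusted p of up to 0.112), and turned to 0.32 on library totals. Smyd1, Smyd4 and Smyd5 had log2 changes of 0.47 ± 0.30, -0.70 ± 0.38 and -0.17 ± 0.26 (SE) and did not pass. On library totals they were at 1.33, 0.28 and 0.73, of which Smyd1 (edgeR, adjusted p = 0.000927) and Smyd5 (edgeR, adjusted p = 0.0263) passed, so that 2 of the 5 were higher and 1 lower.

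**Figure D2:**
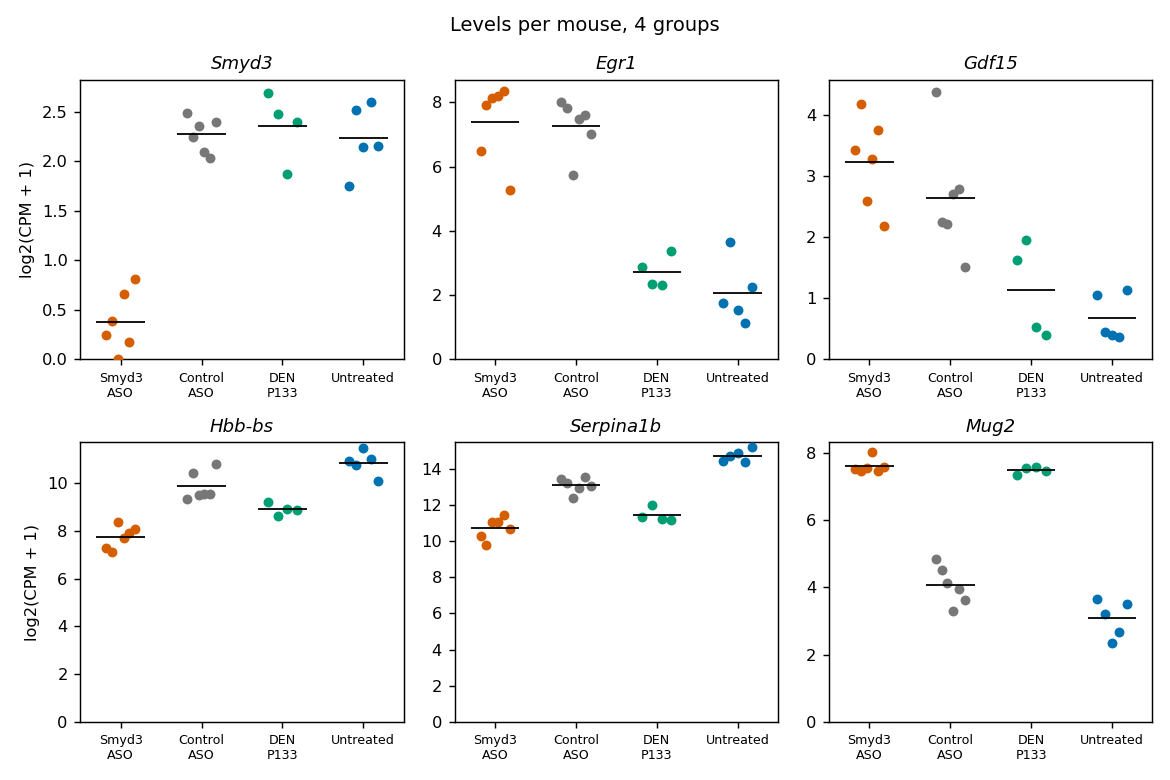
Levels of Smyd3, Egr1, Gdf15, Hbb-bs, Serpina1b and Mug2 as log2(CPM + 1), 1 point per mouse, in Smyd3-ASO (6), control-ASO (6), DEN-P133 (4) and untreated (5) livers, with a bar at the mean. Egr1 is high in both ASO groups and low in DEN-P133 and untreated livers, whereas Serpina1b and Mug2 of Smyd3-ASO livers lie near DEN-P133 livers.

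Many immediate early genes were high in Smyd3-ASO livers. Of 26 listed, 23 passed the filter on low counts. Fos had 8 counts over all untreated mice, so a fall of such a gene could hardly have been called. Of the 23, 16 rose and 1 fell, beside 24.4% higher and 23.2% lower of all genes. Their median log2 change was 1.85 against 0.06 for all genes tested. Control-ASO livers had 15 higher and 1 lower than untreated livers, and between the ASO groups 0 passed upward and 2 downward in Smyd3-ASO livers, Ier2 at -1.10 and Maff at -1.09. Egr1, a zinc finger transcription factor induced by growth factors, had 37.6, 259 and 324 CPM in Smyd3-ASO livers, against 2.36, 11.6, 1.87, 1.16 and 3.74 CPM in untreated livers. All 6 Smyd3-ASO mice were above every untreated mouse, and mice 1 and 6 were the lowest of the 6. The log2 change was 5.62 ± 0.80 (SE; edgeR, adjusted p = 0.000243), and it was 6.49 without untreated mouse 2. Control-ASO livers were at 52.2 to 255 CPM and DEN-P133 livers, which had no injections, at 3.99 to 9.31 CPM.

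Fos, a subunit of the AP-1 transcription factor, had 2.65, 6.97 and 10.7 CPM in Smyd3-ASO livers, against 0.107, 0.237, 0.156, 0.2899 and 0.267 CPM in untreated livers, again without overlap. Its log2 change was 4.88 ± 0.47 (SE; edgeR, adjusted p = 4.34e-06), beside 6.11 in control-ASO livers. Klf6, a Krüppel-like transcription factor, had 11.2, 29.99 and 69.5 CPM in Smyd3-ASO livers, against 2.57, 1.89, 4.51, 3.48 and 3.47 CPM in untreated livers. Klf6's log2 change was 3.41 ± 0.44 (SE; edgeR, adjusted p = 7.62e-05). Ier5, an immediate early gene tied to heat shock factor, had 15.3, 19.5 and 29.6 CPM in Smyd3-ASO livers, against 6.97, 4.26, 7.002, 6.52 and 11.4 CPM in untreated livers. Ier5's log2 change was 1.47 ± 0.24 (SE; edgeR, adjusted p = 0.000242). Among the others, Junb and Jun, partners of Fos in AP-1, rose, with log2 changes of 3.58 ± 0.56 and 2.07 ± 0.35 (SE). Btg2, an antiproliferative gene, rose by 2.99 ± 0.49. The groups did not overlap for any of these genes. Klf2, a Krüppel-like factor of endothelium, was the member that fell, at 10.8, 13.7 and 15.8 CPM in Smyd3-ASO livers, against 25.1, 20.1, 14.6, 19.4 and 19.4 CPM in untreated livers. Klf2's log2 change was -0.57 ± 0.16 (SE; edgeR, adjusted p = 0.0106). It lost the call in 1 fit over the 4 groups (adjusted p = 0.0818) and with counts thinned to the smallest total (adjusted p = 0.121), and was 0.31 on library totals.

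Many genes that ERK signalling induces, most of them to damp itself, were also high. Of 15 listed Ras-MAPK feedback genes, 12 passed the filter on low counts. Dusp5 had 14 counts over all untreated mice, so a fall of such a gene could hardly have been called. Of the 12, 7 rose and 0 fell, a median of 0.69, beside 24.4% higher and 23.2% lower of all genes. Control-ASO livers had 8 higher and 0 lower. Dusp6, a phosphatase of ERK, had 81.03, 124 and 219 CPM in Smyd3-ASO livers, against 27.2, 22.8, 30.2, 22.03 and 29.2 CPM in untreated livers, with no overlap and a log2 change of 2.38 ± 0.26 (SE; edgeR, adjusted p = 1.19e-05), beside 2.25 in control-ASO livers. Ccnd1, cyclin D1, had 44.4, 81.7 and 174 CPM in Smyd3-ASO livers, against 44.8, 24.9, 29.6, 31.02 and 30.8 CPM in untreated livers, with an overlap at the lower end and a log2 change of 1.53 ± 0.34 (SE; edgeR, adjusted p = 0.00248). Etv5, an ETS factor downstream of ERK, had 1.51, 7.33 and 8.65 CPM in Smyd3-ASO livers, against 2.25, 2.13, 3.11, 1.305 and 2.14 CPM in untreated livers, and mouse 6 alone lay within the untreated range, a log2 change of 1.60 ± 0.36 (SE; edgeR, adjusted p = 0.00255). Epha2, a receptor tyrosine kinase that ERK induces, had 4.86, 8.98 and 13.2 CPM in Smyd3-ASO livers, against 2.68, 2.96, 1.87, 3.04 and 5.61 CPM in untreated livers. Epha2's log2 change was 1.38 ± 0.32 (SE; edgeR, adjusted p = 0.00282). Dusp5, a nuclear phosphatase of ERK, set the ASO groups apart. It had 0.575, 1.24 and 2.37 CPM in Smyd3-ASO livers, against 0.322, 0.118, 0.156, 0.8697 and 0.401 CPM in untreated livers, a log2 change of 1.79 ± 0.54 (SE; edgeR, adjusted p = 0.014), but was at 3.02 to 15.9 CPM in control-ASO livers, and Smyd3-ASO over control-ASO livers gave -2.75 ± 0.42 (SE; edgeR, adjusted p = 0.000527). The other 2 members lower in Smyd3-ASO than in control-ASO livers were Spry2 at -1.83 and Dusp7 at -0.82. Antisense and overlapping transcripts could share reads, since the strand of counting is not given, and Ccnd1 overlaps the gene LTO1 on the other strand.

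**Figure D3:**
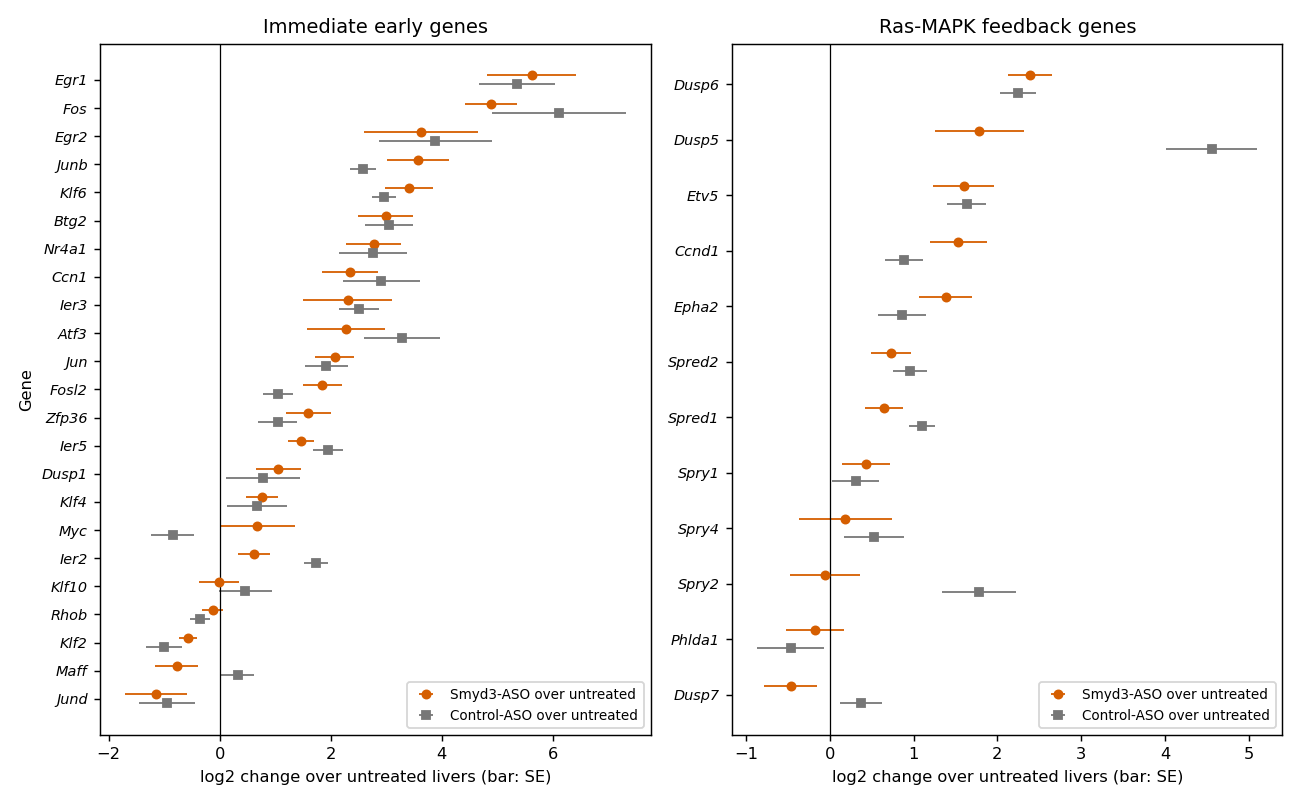
Log2 change over untreated livers, with its SE, of each measured immediate early and Ras-MAPK feedback gene, for Smyd3-ASO livers (orange circles) and control-ASO livers (grey squares), which share the 5 untreated mice. Most genes lie right of 0 in both; Dusp5 is at 1.79 in Smyd3-ASO and 4.56 in control-ASO livers.

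Promoters of these genes were searched for 4 motifs, from 250 bases before to 50 bases after the start site, both strands, in RefSeq's sequences for GRCm38.p6. Promoters on 1 chromosome were left out of the search. The table then held 19 of 23 of the immediate early genes and 9 of 12 of the Ras-MAPK feedback genes. The other members were not searched, so they are not known to lack a match. The cyclic AMP response element TGACGTCA was found in 2 immediate early promoters, Btg2 and Dusp1, and in 1 Ras-MAPK promoter, Epha2, against 1.88% of 27025 promoters in the table. The serum response motif was found in Zfp36 and Dusp5, against 1.57% of promoters, and the AP-1 motif, TGANTCA with G or C at the N, in none of either list, against 5.17%. The C/EBP-ATF motif was also in none of either list, against 0.207%. A match describes the letters and is no measure of binding. The stretches below are shown because their genes rose in Smyd3-ASO livers and carry a match, given in capitals within the strand of the gene. They lie upstream of the start sites of Btg2 (chr1:134079258-134079377, minus strand), Epha2 (chr4:141301132-141301220, plus strand) and Dusp5 (chr19:53529008-53529127, plus strand), with the motif's first base 166, 33 and 82 bases before the start.
Btg2: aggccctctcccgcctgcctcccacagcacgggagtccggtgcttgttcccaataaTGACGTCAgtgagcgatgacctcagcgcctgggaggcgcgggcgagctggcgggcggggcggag
Epha2: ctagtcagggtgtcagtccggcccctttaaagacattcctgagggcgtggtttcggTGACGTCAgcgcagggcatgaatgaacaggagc
Dusp5: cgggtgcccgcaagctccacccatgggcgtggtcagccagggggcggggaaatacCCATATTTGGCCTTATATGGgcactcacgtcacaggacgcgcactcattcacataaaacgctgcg
The Btg2 and Epha2 stretches hold the cyclic AMP response element and the Dusp5 stretch 2 adjacent serum response matches.

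The targets of p53, the transcription factor that answers DNA damage, had the largest share of members higher of all lists after the immediate early genes. Of 26 measured, 17 rose and 3 fell, beside 24.4% higher and 23.2% lower of all genes. Their median was 1.12, and control-ASO livers had 13 higher and 2 lower. Eda2r had 8 counts and Phlda3 12 over all untreated mice, so a fall of such a gene could hardly have been called. Aen, an exonuclease of apoptosis, had 9.97, 12.2 and 22.97 CPM in Smyd3-ASO livers, against 4.398, 2.49, 4.201, 3.62 and 3.205 CPM in untreated livers, with no overlap and a log2 change of 1.94 ± 0.26 (SE; edgeR, adjusted p = 4.97e-05). Smyd3-ASO livers were also above control-ASO livers for Aen, by 1.52 ± 0.22 (SE; edgeR, adjusted p = 0.000352). Mdm2, the ubiquitin ligase that turns p53 over, had 46.1, 51.7 and 62.3 CPM in Smyd3-ASO livers, against 26.6, 24.4, 35.3, 22.3 and 26.04 CPM in untreated livers. Mdm2's log2 change was 0.98 ± 0.15 (SE; edgeR, adjusted p = 0.000154). Eda2r, a death receptor of the tumour necrosis factor family, had 1.02, 2.99 and 4.81 CPM in Smyd3-ASO livers, against 0.215, 0.237, 0, 0.2899 and 0.267 CPM in untreated livers. Eda2r's log2 change was 3.76 ± 0.57 (SE; edgeR, adjusted p = 0.000152). Phlda3, an inhibitor of Akt, had 1.02, 2.05 and 3.802 CPM in Smyd3-ASO livers, against 0.429, 0.118, 0.311, 0.435 and 0.267 CPM in untreated livers. Phlda3's log2 change was 2.81 ± 0.44 (SE; edgeR, adjusted p = 0.000176). For Mdm2, Eda2r and Phlda3 too, every Smyd3-ASO mouse lay above every untreated mouse. Cdkn1a, the cell cycle inhibitor p21, had 5.84, 22.99 and 37.01 CPM in Smyd3-ASO livers, against 1.93, 2.37, 0.467, 1.88 and 4.41 CPM in untreated livers and a log2 change of 3.27 ± 0.53 (SE; edgeR, adjusted p = 0.000437), with DEN-P133 livers at 5.68 to 40.3 CPM. Bax, which opens the mitochondrial membrane in apoptosis, had 1.64, 15.8 and 23.7 CPM in Smyd3-ASO livers, against 2.79, 2.96, 0.934, 2.32 and 2.003 CPM in untreated livers, and mouse 6 alone lay within the untreated range, a log2 change of 2.74 ± 0.53 (SE; edgeR, adjusted p = 0.0014). The members that fell were Perp at -0.93, Plk3 at -1.39 and Trp53 at -0.78. Trp53, p53's own gene, lost its call without any 1 of Smyd3-ASO mice 1, 2, 4 and 5 and untreated mouse 1 (adjusted p of up to 0.0742), and was 0.11 on library totals. Perp and Plk3 were at -0.04 and -0.54 on library totals, on which 0 members were lower. Plk3 also lost its call when no filter was applied (adjusted p = 0.0673).

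Gdf15, a hormone released by stressed liver that lowers appetite, had 3.53, 9.22 and 17.3 CPM in Smyd3-ASO livers, against 1.07, 0.355, 0.311, 0.2899 and 1.202 CPM in untreated livers. Every Smyd3-ASO mouse was above every untreated mouse, and mice 3 and 6 were the lowest of the 6. The log2 change was 3.80 ± 0.50 (SE; edgeR, adjusted p = 6.21e-05), beside 3.34 in control-ASO livers, and DEN-P133 livers were at 0.315 to 2.88 CPM. In the integrated stress response, the factors ATF4 and CHOP answer amino acid and protein stress. Its genes passed less often than the 47.6% of all genes, a difference that was not tested. Of 26 measured, 5 rose, Gdf15 at 3.80, Atf5 at 2.32, Cars at 0.77, Slc7a11 at 7.69 and Cth at 0.64, and 3 fell, Slc3a2 at -2.17, Shmt2 at -1.80 and Sars at -1.63. On library totals 16 were higher and 3 lower. Slc3a2, the heavy chain of amino acid transporters, had 17.5, 21.3 and 29.5 CPM in Smyd3-ASO livers, against 112, 94.7, 61.9, 86.1 and 128 CPM in untreated livers. Slc3a2's log2 change was -2.17 ± 0.19 (SE; edgeR, adjusted p = 2.37e-06). Shmt2, the mitochondrial serine hydroxymethyltransferase, had 38.02, 56.7 and 65.4 CPM in Smyd3-ASO livers, against 209, 242, 166, 151 and 146 CPM in untreated livers. Shmt2's log2 change was -1.80 ± 0.18 (SE; edgeR, adjusted p = 5.68e-06). Sars, the seryl-tRNA synthetase, had 5.31, 6.39 and 8.11 CPM in Smyd3-ASO livers, against 16.3, 26.2, 16.96, 21.3 and 19.1 CPM in untreated livers, a log2 change of -1.63 ± 0.17 (SE; edgeR, adjusted p = 9.05e-06), and in control-ASO livers -0.20 ± 0.15 (SE), which did not pass. All 6 Smyd3-ASO mice were below all 5 untreated mice for Slc3a2, Shmt2 and Sars. Slc7a11, the cystine carrier that pairs with Slc3a2, had 236 counts summed over the Smyd3-ASO mice and 0 over the untreated mice, at least 28.2-fold higher against a floor of 3 counts over the group. Its call was lost with voom (adjusted p = 0.086) and without the filter (adjusted p = 0.0742), and mouse 2 held 164 of the counts, without which the log2 change was 6.59. Cth, the cystathionine lyase, lost its call without any 1 of Smyd3-ASO mice 1, 2, 4 and 5 and untreated mice 1, 2 and 3 (adjusted p of up to 0.0983).

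Many chaperones of the cytosol and mitochondria rose. Of 17 heat shock genes, 9 rose and 1 fell, Cryab, beside 24.4% higher and 23.2% lower of all genes. Their median was 0.84, and control-ASO livers had 7 higher and 0 lower. Hspe1, the cochaperonin of mitochondria, had 236, 514 and 612 CPM in Smyd3-ASO livers, against 179, 165, 162, 188 and 143 CPM in untreated livers, and a log2 change of 1.48 ± 0.22 (SE; edgeR, adjusted p = 0.000137), against -0.10 ± 0.13 (SE) in control-ASO livers. Smyd3-ASO over control-ASO livers gave 1.60 ± 0.21 (SE; edgeR, adjusted p = 0.000166). Hspe1 overlaps its neighbour Hspd1 head to head on the other strand, and Hspd1 rose by 0.48 ± 0.13. Hsp90aa1, the inducible cytosolic Hsp90, had 583, 824 and 1439 CPM in Smyd3-ASO livers, against 187, 169, 184, 175 and 388 CPM in untreated livers. Hsp90aa1's log2 change was 2.07 ± 0.32 (SE; edgeR, adjusted p = 0.000157). Hspb1, a small heat shock protein, had 10.3, 19.9 and 77.8 CPM in Smyd3-ASO livers, against 4.29, 2.37, 3.42, 2.75 and 5.61 CPM in untreated livers, a log2 change of 2.93 ± 0.54 (SE; edgeR, adjusted p = 0.00111), which was 2.33 without Smyd3-ASO mouse 5. Bag3, a cochaperone of Hsp70, had 18.3, 27.9 and 76.5 CPM in Smyd3-ASO livers, against 8.58, 6.04, 13.2, 6.38 and 11.2 CPM in untreated livers. Bag3's log2 change was 1.94 ± 0.38 (SE; edgeR, adjusted p = 0.0014). No Smyd3-ASO mouse reached into the untreated range for Hspe1, Hsp90aa1, Hspb1 or Bag3, and untreated mouse 5 was the highest of its group for Hsp90aa1 and Hspb1. Cryab, alpha-B crystallin, had a log2 change of -0.95 ± 0.23 (SE; edgeR, adjusted p = 0.00429), with a call lost in 1 fit over the 4 groups (adjusted p = 0.0517). Genes of the endoplasmic reticulum passed less often than the 47.6% of all genes, a difference that was not tested: 3 of 21 rose, Pdia3 at 1.54, Hspa5 at 1.17 and Syvn1 at 0.58, and 5 fell, Calr at -1.10, Manf at -1.46, Pdia6 at -0.80, Sel1l at -0.56 and Sdf2l1 at -1.12, of which Pdia6 was at 0.06 and Sel1l at 0.33 on library totals. With library totals 11 were higher and 0 lower. Hspa5, the main chaperone there, had 1224, 2605 and 3291 CPM in Smyd3-ASO livers, against 887, 816, 1083, 786 and 1790.2 CPM in untreated livers, and calreticulin, Calr, had 233, 347 and 384 CPM in Smyd3-ASO livers, against 669, 659, 521, 606 and 972 CPM in untreated livers. Syvn1 lost its call without any 1 of Smyd3-ASO mice 3 and 4 and untreated mice 1 and 4 (adjusted p of up to 0.069), Sdf2l1 without untreated mouse 5 (adjusted p = 0.0619) and Sel1l without untreated mouse 5 (adjusted p = 0.0548).

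Targets of NRF2, which answers oxidants, also passed at about the rates of all genes, 24.4% higher and 23.2% lower, with 8 of 31 higher and 6 lower, and 18 and 1 on library totals. Hmox1, haem oxygenase, had 2.398, 30.4 and 55.5 CPM in Smyd3-ASO livers, against 1.502, 1.54, 1.4004, 1.88 and 1.602 CPM in untreated livers, a log2 change of 4.20 ± 0.71 (SE; edgeR, adjusted p = 0.00064), with mouse 6 lowest and near the untreated range. Abcc4, an efflux pump of the sinusoidal membrane, had 1.46, 4.93 and 8.08 CPM in Smyd3-ASO livers, against 1.61, 0.355, 0.778, 0.435 and 0.534 CPM in untreated livers. Abcc4's log2 change was 2.62 ± 0.51 (SE; edgeR, adjusted p = 0.001). Gclm, the modifier subunit of glutamate-cysteine ligase, had 131, 161 and 178 CPM in Smyd3-ASO livers, against 237, 274, 261, 254 and 260.4 CPM in untreated livers, a log2 change of -0.73 ± 0.13 (SE; edgeR, adjusted p = 0.000503), which was 0.18 and no longer lower on library totals. Abcc2, the pump of the bile canaliculus, had a log2 change of -1.01 ± 0.20 (SE; edgeR, adjusted p = 0.000938), and -0.07 on library totals.

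Many markers of liver tumours were above normal liver, and many were below control-ASO livers. Of 35 listed, 32 passed the filter on low counts, and genes with few counts in untreated livers could hardly have been called lower. Of the 32, 15 rose and 1 fell, beside 24.4% higher and 23.2% lower of all genes. Their median was 1.20, against 21 higher and 1 lower and a median of 2.76 in control-ASO livers. In Smyd3-ASO over control-ASO livers 4 were higher and 15 lower, the 4 being Epcam at 1.46, Cd44 at 0.78, Cbr3 at 2.31 and Rgs5 at 0.91. Afp, alpha-fetoprotein, had 5.92, 23.2 and 38.97 CPM in Smyd3-ASO livers, against 3.22, 5.33, 5.45, 3.04 and 2.67 CPM in untreated livers, and the lowest Smyd3-ASO mice, 3 and 4, were just above the highest untreated mouse. The log2 change was 2.47 ± 0.51 (SE; edgeR, adjusted p = 0.00207), whereas control-ASO livers were at 94.1 to 341 CPM and Smyd3-ASO over control-ASO livers gave -3.05 ± 0.49 (SE; edgeR, adjusted p = 0.000977). Gpc3, the cell surface proteoglycan glypican 3, had 0.865, 3.75 and 5.74 CPM in Smyd3-ASO livers, against 0.644, 1.07, 1.24, 0.2899 and 0.534 CPM in untreated livers, with mice 3 and 4 within the untreated range. Its log2 change was 2.06 ± 0.54 (SE; edgeR, adjusted p = 0.00684), not past the threshold with voom (adjusted p = 0.088), and Smyd3-ASO over control-ASO livers gave -4.39 ± 0.52 (SE; edgeR, adjusted p = 0.00016). Tspan8, a tetraspanin, had 0.919, 7.86 and 10.1 CPM in Smyd3-ASO livers, against 0.215, 0, 0.156, 0 and 0.267 CPM in untreated livers, a log2 change of 5.48 ± 0.97 (SE; edgeR, adjusted p = 0.000705), also lost with voom (adjusted p = 0.052). Mice 3 and 4 were the lowest of the 6 for all 3 genes.

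Rgs5, a regulator of G protein signalling of pericytes and of liver tumours, had 34.5, 53.6 and 79.9 CPM in Smyd3-ASO livers, against 12.1, 12.5, 9.65, 15.7 and 12.02 CPM in untreated livers. Rgs5's log2 change was 2.14 ± 0.22 (SE; edgeR, adjusted p = 7.21e-06). Spink1, a trypsin inhibitor, had 1.77, 4.09 and 4.86 CPM in Smyd3-ASO livers, against 0.536, 0.592, 0.311, 0.5798 and 1.47 CPM in untreated livers. Spink1's log2 change was 2.39 ± 0.38 (SE; edgeR, adjusted p = 0.000193). Sox4, a transcription factor of progenitors, had 3.62, 6.903 and 12.7 CPM in Smyd3-ASO livers, against 2.25, 1.66, 2.801, 2.03 and 1.07 CPM in untreated livers. Sox4's log2 change was 1.94 ± 0.36 (SE; edgeR, adjusted p = 0.000651). The groups did not overlap for these 3 genes. Igf2bp3, an RNA-binding oncofetal protein, went the other way at 0, 0.117 and 0.481 CPM in Smyd3-ASO livers, against 2.47, 5.92, 1.09, 4.35 and 1.47 CPM in untreated livers, a log2 change of -4.03 ± 0.63 (SE; edgeR, adjusted p = 0.000197), with DEN-P133 livers at 0 to 0.158 CPM. Igf2bp3 overlaps Malsu1 on the other strand. A list of growth and mesenchymal genes linked to Smyd3 in other work had 9 of 22 higher and 1 lower, Jak1 at -1.05, in Smyd3-ASO over untreated livers. These 22 are the members, of 27 listed, that passed the filter on low counts. Among all genes, 24.4% were higher and 23.2% lower. Mmp14, a membrane matrix protease, had 18.5, 28.2 and 36.7 CPM in Smyd3-ASO livers, against 8.48, 8.52, 10.1, 6.09 and 17.8 CPM in untreated livers and a log2 change of 1.47 ± 0.27 (SE; edgeR, adjusted p = 0.000591). Cdh1, E-cadherin, had 74.04, 166 and 217 CPM in Smyd3-ASO livers, against 47.3, 70.9, 57.9, 66.5 and 90.1 CPM in untreated livers and a log2 change of 1.21 ± 0.24 (SE; edgeR, adjusted p = 0.00108).

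Many plasma proteins made by hepatocytes were lower in Smyd3-ASO livers. Of 25 carrier and apolipoprotein genes, 12 fell and 2 rose, beside 23.2% lower and 24.4% higher of all genes. Their median was -0.64, whereas on library totals 7 were lower and 6 higher. Control-ASO livers had 8 lower and 4 higher, and Smyd3-ASO over control-ASO livers 11 lower and 3 higher. Alb, albumin, had 13207, 19465 and 29252 CPM in Smyd3-ASO livers, against 78698, 52071, 35246, 69452 and 64111 CPM in untreated livers, with no overlap and a log2 change of -1.60 ± 0.29 (SE; edgeR, adjusted p = 0.000615). Ttr, the thyroxine and retinol carrier transthyretin, had 2219, 2711 and 3319.8 CPM in Smyd3-ASO livers, against 18439, 22952, 9784, 20023 and 9661 CPM in untreated livers. Ttr's log2 change was -2.58 ± 0.28 (SE; edgeR, adjusted p = 1.13e-05). Ahsg, fetuin A, had 2748, 3734 and 5303 CPM in Smyd3-ASO livers, against 24006, 23434, 12686, 18351 and 24002 CPM in untreated livers, a log2 change of -2.43 ± 0.26 (SE; edgeR, adjusted p = 8.82e-06), against -0.16 ± 0.28 (SE), not past the threshold, in control-ASO livers. Apoe, an apolipoprotein of remnant particles, had 6572, 7686 and 8250.2 CPM in Smyd3-ASO livers, against 33270, 34162, 23501, 32283 and 23751 CPM in untreated livers. Apoe's log2 change was -1.98 ± 0.22 (SE; edgeR, adjusted p = 1.15e-05). Apoc4, a lesser apolipoprotein whose reads could be shared with an overlapping predicted gene, had 239.7, 332 and 353 CPM in Smyd3-ASO livers, against 1869, 1581, 1262, 1486 and 1095 CPM in untreated livers. Apoc4's log2 change was -2.27 ± 0.20 (SE; edgeR, adjusted p = 2.03e-06). Each of these 5 genes was lower in every Smyd3-ASO mouse than in any untreated mouse. The members that rose were Apob at 1.76 and Apoa4 at 1.77. Apoa4, an apolipoprotein made in liver when lipid is high, was at 212 to 264 CPM in Smyd3-ASO mice 1, 2 and 6, at 123 CPM in mouse 5 and within the untreated range of 29.1 to 53.1 CPM in mice 3 and 4.

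Protease inhibitors held large changes in both directions. Of 30 measured, 15 fell and 4 rose, beside 23.2% lower and 24.4% higher of all genes. Those that rose included Mug2 at 4.59, Serpina3g at 1.39 and Serpina7 at 1.35. On library totals 9 were lower and 10 higher. Serpina1b, a copy of alpha-1-antitrypsin, which holds neutrophil elastase in check, had 871, 1917 and 2831 CPM in Smyd3-ASO livers, against 22268, 26837, 30508, 21639.6 and 37887 CPM in untreated livers. The groups lay far apart, and the log2 change was -3.95 ± 0.33 (SE; edgeR, adjusted p = 1.76e-06), beside -1.60 ± 0.26 (SE; edgeR, adjusted p = 0.000187) in control-ASO livers. Smyd3-ASO over control-ASO livers gave -2.33 ± 0.29 (SE; edgeR, adjusted p = 0.000112), and DEN-P133 livers, with no ASO, were at 2356 to 4177 CPM. The Serpina1 copies are nearly identical and Serpina1b overlaps Serpina1d, so its counts may hold reads of its relatives. Serpina3c, a relative of antichymotrypsin, had 3.88, 8.28 and 18.3 CPM in Smyd3-ASO livers, against 208, 290.2, 201, 367 and 198 CPM in untreated livers. Serpina3c's log2 change was -4.76 ± 0.39 (SE; edgeR, adjusted p = 2.76e-06). Serpina6, the cortisol carrier, had 10.4, 18.4 and 32.2 CPM in Smyd3-ASO livers, against 316, 147, 157, 166 and 155 CPM in untreated livers, a log2 change of -3.27 ± 0.30 (SE; edgeR, adjusted p = 3.68e-06), whereas control-ASO livers were at 89.98 to 826 CPM. Serping1, the inhibitor of complement C1, had 224, 374 and 472 CPM in Smyd3-ASO livers, against 2340.1, 2249, 1593, 2117 and 3523 CPM in untreated livers. Serping1's log2 change was -2.72 ± 0.25 (SE; edgeR, adjusted p = 3.52e-06). All 4 of these inhibitors were lower in every Smyd3-ASO mouse than in any untreated mouse.

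Mug2, a murinoglobulin that traps proteases, was the member that rose with the smallest adjusted p. It had 175, 186 and 261 CPM in Smyd3-ASO livers, against 11.7, 8.28, 4.05, 5.36 and 10.4 CPM in untreated livers. Mug2's log2 change was 4.59 ± 0.28 (SE; edgeR, adjusted p = 1.59e-07). DEN-P133 livers were at 163 to 193 CPM, a range that overlapped that of Smyd3-ASO livers, and control-ASO livers at 8.903 to 27.98 CPM. Its near copy Mug1 fell by 1.71 ± 0.30, and reads of the pair may be split between them. Serpina7, the thyroxine-binding globulin, lost its call without any 1 of Smyd3-ASO mice 2, 3, 4 and 6 and untreated mice 1, 2, 3 and 4 (adjusted p of up to 0.078), and its change was 2.01 without untreated mouse 5.

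Most clotting factors and many complement factors were lower in the same livers. Of 20 coagulation genes, 14 fell and 0 rose, beside 23.2% lower and 24.4% higher of all genes. Their median was -0.75, and on library totals 4 were lower and 5 higher. Control-ASO livers had 10 lower and 1 higher, F2 at 0.45. F9, clotting factor IX, had 49.8, 76.6 and 90.1 CPM in Smyd3-ASO livers, against 267, 274, 294, 296 and 354 CPM in untreated livers. F9's log2 change was -2.04 ± 0.17 (SE; edgeR, adjusted p = 1.28e-06). Plg, plasminogen, had 589, 1015 and 1275 CPM in Smyd3-ASO livers, against 2369, 3018, 2519, 2935 and 4177 CPM in untreated livers. Plg's log2 change was -1.65 ± 0.25 (SE; edgeR, adjusted p = 0.000144). Vtn, the adhesive plasma protein vitronectin, had 347, 682 and 1043 CPM in Smyd3-ASO livers, against 2118, 2295, 2065, 2131 and 5392 CPM in untreated livers. Vtn's log2 change was -2.03 ± 0.34 (SE; edgeR, adjusted p = 0.000289). Proc, the anticoagulant protein C, had 117, 123 and 143 CPM in Smyd3-ASO livers, against 284, 261, 257, 269 and 226 CPM in untreated livers, a log2 change of -1.06 ± 0.12 (SE; edgeR, adjusted p = 1.68e-05), and -0.18 on library totals. No pair of groups overlapped for these 4 genes.

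Of 26 complement genes, 13 fell and 3 rose, beside 23.2% lower and 24.4% higher of all genes. The 3 were C1qa at 1.51, Cfd at 9.94 and C1ra at 0.62, and library totals gave 5 lower and 10 higher. C1ra lost its call without any 1 of Smyd3-ASO mice 1, 2 and 3 and untreated mice 2, 3 and 4 (adjusted p of up to 0.0755). C2, a protease of the classical pathway, had 18.97, 29.2 and 50.4 CPM in Smyd3-ASO livers, against 81.5, 117, 91.5, 74.9 and 80.5 CPM in untreated livers. C2's log2 change was -1.54 ± 0.23 (SE; edgeR, adjusted p = 0.000145). C1qb and C1qa, chains of one molecule made by macrophages, went opposite ways. C1qb had 19.9, 21.8 and 26.997 CPM in Smyd3-ASO livers, against 65.9, 51.4, 56.02, 55.4 and 96.9 CPM in untreated livers. C1qb's log2 change was -1.53 ± 0.18 (SE; edgeR, adjusted p = 1.58e-05). C1qa had 69.3, 177 and 243 CPM in Smyd3-ASO livers, against 63.4, 49.7, 40.8, 64.1 and 80.1 CPM in untreated livers. C1qa's log2 change was 1.51 ± 0.28 (SE; edgeR, adjusted p = 0.000648). C2 overlaps a predicted gene on the same strand, and Masp1 and Masp2, proteases of the lectin pathway that fell, with log2 changes of -1.04 ± 0.13 and -1.03 ± 0.13 (SE), overlap Rtp4 and Tardbp on the other strand. The change of Masp1 was -0.15 and that of Masp2 -0.15 on library totals.

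**Figure D4:**
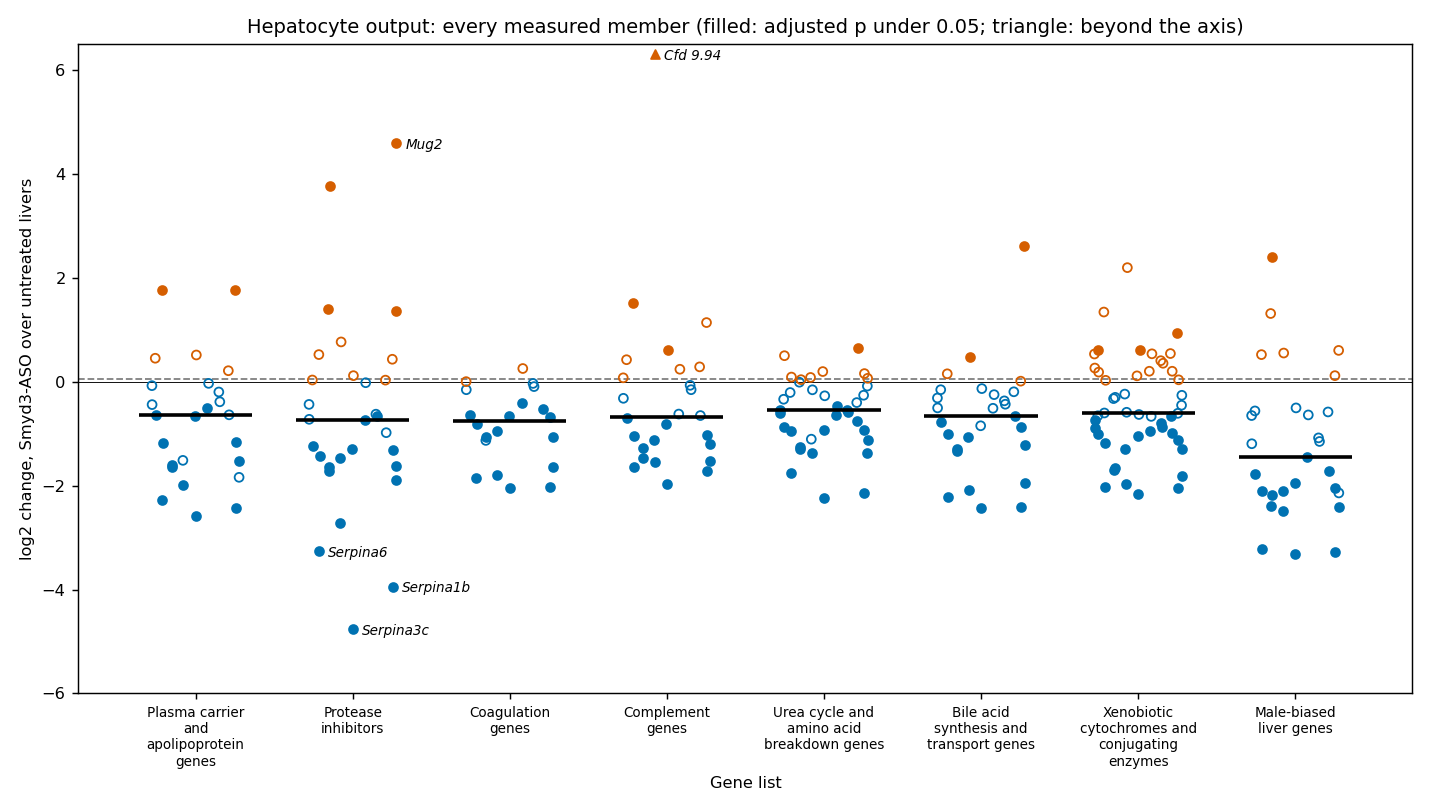
Log2 change of every measured member of 8 lists chosen for hepatocyte output, Smyd3-ASO over untreated livers. Filled points passed an adjusted p of 0.05 and open points did not. Bars mark list medians and the dashed line the median of all genes, 0.06. The complement list also holds genes of other cells, C1qa and C1qb of macrophages and Cfd chiefly of fat cells. Serpina1b, Serpina3c and Serpina6 lie lowest among protease inhibitors, and Mug2 highest; Cfd, a complement gene at 9.94, is drawn at the upper edge.

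Red cell transcripts were lower. Hbb-bs, an adult beta-globin chain, had 138, 221 and 331 CPM in Smyd3-ASO livers, against 1964, 1738, 2860.3, 2059.7 and 1079 CPM in untreated livers, and every Smyd3-ASO mouse was below every untreated mouse. The log2 change was -3.14 ± 0.29 (SE; edgeR, adjusted p = 3.04e-06), beside -0.95 ± 0.30 (SE; edgeR, adjusted p = 0.0196) in control-ASO livers, and DEN-P133 livers were at 392 to 591 CPM. 9 of 14 listed erythroid genes had enough counts to be tested, and Hbb-bs, Hba-a1 and Hbb-bt were lower on library totals too. Hba-a1, an alpha chain, had 252, 395 and 615 CPM in Smyd3-ASO livers, against 2455, 2612, 3199.5, 2625 and 1269.9 CPM in untreated livers. Hba-a1's log2 change was -2.61 ± 0.28 (SE; edgeR, adjusted p = 1.05e-05). Hbb-bt, the other beta chain, had 50.3, 69.98 and 112 CPM in Smyd3-ASO livers, against 299.6, 290.3, 346, 362 and 208 CPM in untreated livers. Hbb-bt's log2 change was -2.06 ± 0.21 (SE; edgeR, adjusted p = 7.62e-06). The alpha copies and the beta copies are nearly identical and may share reads. Alas2, the erythroid enzyme of haem synthesis, fell by 0.99 ± 0.22, and its change was -0.13 on library totals. The summed level of the 13 listed genes in the count table was 708 to 1722 CPM in Smyd3-ASO livers and 3798 to 8688 CPM in untreated livers. In bulk liver, fewer cells of a type and less RNA per cell cannot be told apart, here and in the results that follow.

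Many enzymes of nitrogen and amino acid disposal fell. Of 36 measured, 19 fell and 1 rose, Cth, beside 23.2% lower and 24.4% higher of all genes. Their median was -0.54, and on library totals 4 were lower and 14 higher. Control-ASO livers had 25 lower and 1 higher, Gldc at 0.64. Cbs, which turns homocysteine to cystathionine, had 64.7, 114 and 199 CPM in Smyd3-ASO livers, against 617, 610.01, 362, 467 and 641 CPM in untreated livers. Cbs's log2 change was -2.24 ± 0.27 (SE; edgeR, adjusted p = 2.7e-05). Prodh, the proline oxidase, had 12.6, 17.6 and 28.02 CPM in Smyd3-ASO livers, against 73.7, 77.997, 103, 90.01 and 58.6 CPM in untreated livers, a log2 change of -2.14 ± 0.21 (SE; edgeR, adjusted p = 4.34e-06); it overlaps Dgcr6 on the other strand. Uroc1, urocanase of histidine breakdown, had 65.2, 83.9 and 88.8 CPM in Smyd3-ASO livers, against 241, 220.3, 183, 208 and 177 CPM in untreated livers. Uroc1's log2 change was -1.36 ± 0.14 (SE; edgeR, adjusted p = 7.03e-06). Cps1, the first enzyme of the urea cycle, had 447, 540.2 and 622 CPM in Smyd3-ASO livers, against 1025, 1173, 1139, 1339 and 1078 CPM in untreated livers, a log2 change of -1.12 ± 0.16 (SE; edgeR, adjusted p = 9.1e-05), and -0.23 on library totals. The groups were apart for Cbs, Prodh, Uroc1 and Cps1.

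Many bile acid genes fell too, 13 of 27 lower and 2 higher, beside 23.2% lower and 24.4% higher of all genes. The 2 were Abcc4 at 2.62 and Acox2 at 0.47, and library totals gave 6 lower and 10 higher. Akr1d1, a reductase of bile acid synthesis, had 11.9, 21.7 and 34.02 CPM in Smyd3-ASO livers, against 98.3, 104, 80.1, 126 and 85.998 CPM in untreated livers. Akr1d1's log2 change was -2.22 ± 0.23 (SE; edgeR, adjusted p = 8.82e-06). Slc10a1, the sodium-driven carrier that takes bile acids up from blood, had 47.6, 64.9 and 103 CPM in Smyd3-ASO livers, against 236, 280.03, 297, 312 and 181 CPM in untreated livers. Slc10a1's log2 change was -1.95 ± 0.21 (SE; edgeR, adjusted p = 1.15e-05). Slco1a4, a carrier of organic anions, had 29.1, 48.9 and 94.3 CPM in Smyd3-ASO livers, against 311, 304, 272, 347 and 137 CPM in untreated livers. Slco1a4's log2 change was -2.42 ± 0.32 (SE; edgeR, adjusted p = 5.92e-05). None of the 3 overlapped between the groups, and untreated mouse 5 was the lowest of its group for Slc10a1 and Slco1a4. Hsd3b7, another enzyme of synthesis, fell by 1.30 ± 0.19, and its change was -0.40 on library totals. Control-ASO livers had 17 of these genes lower and 1 higher, Abcc4 at 1.55.

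Lipid genes passed at about the rates of all genes, 24.4% higher and 23.2% lower, so the counts show nothing particular to them, and single enzymes are given for their own values. Among 37 fatty acid oxidation genes, 7 rose and 10 fell, and on library totals 19 were higher and 1 lower. Hadha, of the mitochondrial trifunctional protein, had 71.4, 92.2 and 122 CPM in Smyd3-ASO livers, against 307, 302, 316, 465 and 200.3 CPM in untreated livers. Hadha's log2 change was -1.79 ± 0.20 (SE; edgeR, adjusted p = 1.37e-05). Acadm, medium-chain dehydrogenase, rose by 0.85 ± 0.13, and Acaa2, mitochondrial thiolase, fell by 1.17 ± 0.17, and its change was -0.29 on library totals. Of 27 genes of lipid synthesis and storage, 8 rose and 6 fell. On library totals, 18 were higher and 3 lower of these 27. Dgat2, which makes triglyceride, had 84.6, 117 and 203 CPM in Smyd3-ASO livers, against 1092, 1039, 911, 1104 and 755 CPM in untreated livers. Dgat2's log2 change was -2.95 ± 0.22 (SE; edgeR, adjusted p = 7.82e-07). Cd36, a fatty acid receptor, had 18.1, 24.2 and 44.2 CPM in Smyd3-ASO livers, against 5.47, 2.96, 2.33, 6.52 and 4.81 CPM in untreated livers. Cd36's log2 change was 2.61 ± 0.31 (SE; edgeR, adjusted p = 2.7e-05). Mlxipl, the carbohydrate response factor ChREBP, had 97.8, 161 and 200.3 CPM in Smyd3-ASO livers, against 88.7, 53.02, 72.7, 38.7 and 53.9 CPM in untreated livers. Mlxipl's log2 change was 1.33 ± 0.24 (SE; edgeR, adjusted p = 0.000535). Thrsp, a lipogenic gene, had 59.5, 121 and 231 CPM in Smyd3-ASO livers, against 831, 642, 361, 981 and 511 CPM in untreated livers. Thrsp's log2 change was -2.38 ± 0.41 (SE; edgeR, adjusted p = 0.000555). Groups did not overlap for these 4 genes.

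Cholesterol synthesis genes were 4 higher, Cyp51 at 1.16, Idi1 at 1.13, Hmgcs1 at 0.87 and Srebf2 at 0.66, and 9 lower of 25, a balance that was 14 higher and 3 lower on library totals. Dhcr7, the last reductase, had 7.67, 9.72 and 17.5 CPM in Smyd3-ASO livers, against 45.9, 70.4, 49.8, 58.1 and 95.6 CPM in untreated livers. Dhcr7's log2 change was -2.53 ± 0.26 (SE; edgeR, adjusted p = 7.3e-06). Cyp51, lanosterol demethylase, had 277, 329.99 and 395 CPM in Smyd3-ASO livers, against 100.95, 127, 132, 139 and 241 CPM in untreated livers, a log2 change of 1.16 ± 0.21 (SE; edgeR, adjusted p = 0.000549), and overlaps Akap9 on the other strand. Nsdhl, a dehydrogenase of the pathway, fell by 1.49 ± 0.23. Hmgcs1 lost its call without any 1 of untreated mice 1 and 3 (adjusted p of up to 0.0509) and Srebf2 without any 1 of Smyd3-ASO mouse 2 and untreated mice 1, 3 and 4 (adjusted p of up to 0.0643). Of 32 glucose genes 6 rose and 9 fell, near the 24.4% and 23.2% of all genes, and 16 and 2 did so on library totals. Pfkl, liver phosphofructokinase, had 3.08, 4.59 and 5.41 CPM in Smyd3-ASO livers, against 30.3, 26.4, 19.8, 24.4 and 32.2 CPM in untreated livers. Pfkl's log2 change was -2.65 ± 0.18 (SE; edgeR, adjusted p = 3.8e-07). Gapdh, a glycolytic enzyme often taken as a reference gene, had 29.2, 42.8 and 49.3 CPM in Smyd3-ASO livers, against 108, 113, 99.9, 117 and 112 CPM in untreated livers. Gapdh's log2 change was -1.46 ± 0.16 (SE; edgeR, adjusted p = 1.08e-05). Pgk1, the next enzyme, had 128, 171 and 221 CPM in Smyd3-ASO livers, against 71.6, 70.4, 84.3, 71.5 and 73.7 CPM in untreated livers. Pgk1's log2 change was 1.20 ± 0.15 (SE; edgeR, adjusted p = 3.06e-05). Fbp1, of gluconeogenesis, fell by 1.09 ± 0.17, and its change was -0.22 on library totals.

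Many genes of drug and steroid metabolism were lower than in untreated livers, and many were higher than in control-ASO livers. Of 48 cytochromes and conjugating enzymes, 20 fell and 3 rose, beside 23.2% lower and 24.4% higher of all genes. The 3 were Fmo5 at 0.94, Cyp2a12 at 0.60 and Sult1d1 at 0.61, and library totals gave 7 lower and 18 higher. Control-ASO livers had 31 lower and 0 higher, and in Smyd3-ASO over control-ASO livers 19 were higher and 2 lower, Cyp2d26 at -0.94 and Sult1c2 at -1.70. Cyp1a2, which oxidises caffeine and aromatic amines, had 135, 337 and 381 CPM in Smyd3-ASO livers, against 1019.8, 1365, 1249.7, 1288 and 661 CPM in untreated livers, a log2 change of -1.96 ± 0.28 (SE; edgeR, adjusted p = 9.82e-05), with control-ASO livers at 45.5 to 263 CPM. Ces3a, a carboxylesterase, had 125, 294 and 479 CPM in Smyd3-ASO livers, against 1136, 1532, 1505, 1478 and 869 CPM in untreated livers. Ces3a's log2 change was -2.17 ± 0.30 (SE; edgeR, adjusted p = 6.62e-05). Cyp2c67, a cytochrome of a family with close copies that may share reads, had 47.8, 60.9 and 104 CPM in Smyd3-ASO livers, against 119, 247, 240.4, 181 and 230.1 CPM in untreated livers. Cyp2c67's log2 change was -1.67 ± 0.23 (SE; edgeR, adjusted p = 6.49e-05). Smyd3-ASO mice were all below untreated mice for Cyp1a2, Ces3a and Cyp2c67. Ugt2a3, a glucuronosyltransferase, fell by 1.05 ± 0.16, and its change was -0.17 on library totals.

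Of liver genes whose level depends on sex, male-biased genes fell more often than the 23.2% of all genes. Female-biased genes passed less often than the 47.6% of all genes, and neither difference was tested. The Y-linked genes Ddx3y, Eif2s3y and Kdm5d were measured in all 21 mice. Of 29 male-biased genes, 14 fell and 1 rose, Spink1, with 8 lower and 3 higher on library totals. Control-ASO livers had 20 lower and 1 higher, Spink1 at 4.57. Cyp4a12a, a fatty acid hydroxylase of male liver, had 166, 229 and 482 CPM in Smyd3-ASO livers, against 1366, 1907, 1359.98, 1787 and 729 CPM in untreated livers. Cyp4a12a's log2 change was -2.38 ± 0.31 (SE; edgeR, adjusted p = 4.37e-05). Nudt7, a coenzyme A hydrolase of peroxisomes, had 129, 279.5 and 356 CPM in Smyd3-ASO livers, against 706, 923, 967, 959 and 859 CPM in untreated livers. Nudt7's log2 change was -1.79 ± 0.25 (SE; edgeR, adjusted p = 9.1e-05). C8b, a chain of the complement attack complex, had 30.4, 72.6 and 127 CPM in Smyd3-ASO livers, against 205, 259.6, 285, 221 and 238 CPM in untreated livers. C8b's log2 change was -1.71 ± 0.28 (SE; edgeR, adjusted p = 0.000254). Groups lay apart for these 3 male-biased genes. Of 22 female-biased genes, 4 rose, Sult1e1 at 5.96, Cyp2a4 at 2.77, Tox at 0.84 and Sult2a2 at 3.53, and 4 fell, among them Prlr at -1.73, Cyp2c69 at -3.43 and Acot3 at -1.85. Control-ASO livers had 11 higher and 1 lower, Cyp2b10 at -3.03, and Smyd3-ASO over control-ASO livers 2 higher, Cyp2b10 at 3.60 and Sult1e1 at 3.60, and 17 lower. The untreated comparison gave 8 higher and 1 lower on library totals. Of those named, Sult2a2 rested on 38 counts in Smyd3-ASO and 1 in untreated mice, a ratio of 13.6 (exact Poisson 95% interval 2.30 to 553), and lost its call without any 1 of Smyd3-ASO mice 2, 5 and 6 and untreated mice 1, 2, 3, 4 and 5 (adjusted p of up to 0.103). Tox lost its call without any 1 of Smyd3-ASO mice 1, 2, 3 and 6 and untreated mice 2, 3, 4 and 5 (adjusted p of up to 0.101) and Acot3 without any 1 of Smyd3-ASO mice 1, 3, 4, 5 and 6 and untreated mice 1 and 4 (adjusted p of up to 0.308). Cyp2a4, a steroid hydroxylase with a near copy in Cyp2a5, had 6.72, 38.5 and 64.8 CPM in Smyd3-ASO livers, against 15.7, 2.604, 3.27, 3.62 and 0.534 CPM in untreated livers, a log2 change of 2.77 ± 0.77 (SE; edgeR, adjusted p = 0.0132) that was 3.84 without untreated mouse 1. Control-ASO livers were at 316 to 1156 CPM, and Smyd3-ASO over control-ASO livers gave -4.31 ± 0.52 (SE; edgeR, adjusted p = 0.000155). Prlr, the prolactin receptor, had 8.86, 23.6 and 32.4 CPM in Smyd3-ASO livers, against 111, 63.1, 43.3, 78.9 and 81.99 CPM in untreated livers. Prlr's log2 change was -1.73 ± 0.31 (SE; edgeR, adjusted p = 0.000649). Cyp2c69 had 1.32, 1.54 and 4.68 CPM in Smyd3-ASO livers, against 43.8, 18.8, 2.02, 38.6 and 6.28 CPM in untreated livers. Cyp2c69's log2 change was -3.43 ± 0.70 (SE; edgeR, adjusted p = 0.00229).

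Hepatocyte transcription factors and receptors passed at rates near those of all genes, 24.4% higher and 23.2% lower, and single factors are given for their own values. Of 32 measured, 10 fell and 6 rose, and on library totals 4 were lower and 15 higher. Cebpa, a factor that drives metabolic genes and holds back division, had 28.7, 35.3 and 43.3 CPM in Smyd3-ASO livers, against 164, 167, 143, 135 and 100.7 CPM in untreated livers. Cebpa's log2 change was -2.03 ± 0.16 (SE; edgeR, adjusted p = 1.07e-06). Hnf4a, the main factor of hepatocyte fate, had 60.4, 84.1 and 114 CPM in Smyd3-ASO livers, against 202, 211, 208, 183 and 248 CPM in untreated livers. Hnf4a's log2 change was -1.31 ± 0.18 (SE; edgeR, adjusted p = 6.62e-05). Igf1, the growth factor that liver releases under growth hormone, had 384, 432 and 525 CPM in Smyd3-ASO livers, against 1106, 1128, 861, 1146 and 998 CPM in untreated livers, a log2 change of -1.26 ± 0.16 (SE; edgeR, adjusted p = 3.78e-05) and -0.38 on library totals. Cebpa, Hnf4a and Igf1 were lower in all 6 Smyd3-ASO mice than in any untreated mouse. Zonal genes were called at about the rate of all genes or below it, which were 24.4% higher and 23.2% lower, except for more falls among periportal genes: 6 of 24 pericentral genes fell and 2 rose, Ahr at 1.14 and Axin2 at 0.97, and 7 of 20 periportal genes fell and 4 rose, Hsd17b13 at 1.49, Aldh1b1 at 0.87, Apoa4 at 1.77 and Uox at 0.47. On library totals the counts were 2 lower and 9 higher for pericentral and 1 lower and 10 higher for periportal genes. Axin2 lost its call without any 1 of Smyd3-ASO mice 1, 2 and 6 and untreated mice 2, 3, 4 and 5 (adjusted p of up to 0.117) and Uox without any 1 of Smyd3-ASO mice 1 and 4 and untreated mice 1, 2, 3 and 5 (adjusted p of up to 0.109). Smyd3-ASO over control-ASO livers had 9 pericentral genes higher and 1 lower, Tcf7 at -1.04. Hsd17b6, a periportal steroid dehydrogenase, had 37.5, 42.7 and 62.4 CPM in Smyd3-ASO livers, against 305, 277, 209, 334 and 116 CPM in untreated livers. Hsd17b6's log2 change was -2.43 ± 0.25 (SE; edgeR, adjusted p = 6.77e-06). Rhbg, an ammonium carrier of pericentral cells that overlaps a predicted gene, had 3.404, 5.38 and 9.47 CPM in Smyd3-ASO livers, against 22.2, 20.2, 20.1, 22.2 and 8.68 CPM in untreated livers. Rhbg's log2 change was -1.72 ± 0.31 (SE; edgeR, adjusted p = 0.0006).

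Many interferon-responsive and chemokine genes were higher. Of 32 interferon response genes, 14 rose and 0 fell, beside 24.4% higher and 23.2% lower of all genes. Their median was 0.56, and without Smyd3-ASO mouse 3 and untreated mouse 5, 10 rose and 1 fell. Control-ASO livers had 11 higher and 4 lower, among them Gbp7 at -0.87, Gbp2 at -1.20 and Ifi27l2a at -0.95. Irf1, a transcription factor that interferon gamma induces, had 35.2, 50.03 and 112 CPM in Smyd3-ASO livers, against 16.3, 15.5, 14.9, 13.3 and 14.7 CPM in untreated livers. Irf1's log2 change was 2.02 ± 0.27 (SE; edgeR, adjusted p = 6.84e-05). Rsad2, the antiviral protein viperin, had 10.4, 24.8 and 47.9 CPM in Smyd3-ASO livers, against 6.87, 4.85, 2.65, 5.51 and 2.67 CPM in untreated livers. Rsad2's log2 change was 2.50 ± 0.42 (SE; edgeR, adjusted p = 0.000446). Both genes were higher in every Smyd3-ASO mouse than in any untreated mouse. Ifi44, an interferon-induced gene, had 3.89, 7.54 and 11.7 CPM in Smyd3-ASO livers, against 3.33, 1.89, 2.18, 2.32 and 2.94 CPM in untreated livers. Ifi44's log2 change was 1.54 ± 0.27 (SE; edgeR, adjusted p = 0.000451). Gbp3, a guanylate-binding protein, had 1.59, 3.21 and 6.07 CPM in Smyd3-ASO livers, against 0.322, 0.473, 0.156, 0.435 and 1.34 CPM in untreated livers, a log2 change of 2.69 ± 0.49 (SE; edgeR, adjusted p = 0.00054) that was 3.31 without untreated mouse 5. Of 23 listed chemokine genes, 19 passed the filter on low counts. Ccl4 had 6 counts over all untreated mice, so a fall of such a gene could hardly have been called. Of the 19, 11 rose and 2 fell, Ccl9 at -0.73 and Ccl27a at -0.73, beside 24.4% higher and 23.2% lower of all genes. Ccl27a was at 0.16 on library totals and lost its call without any 1 of untreated mice 1 and 3 (adjusted p of up to 0.0706). On library totals 13 chemokine genes were higher and 0 lower. Ccl6, a chemokine of myeloid cells, had 16.03, 20.03 and 32.4 CPM in Smyd3-ASO livers, against 6.33, 3.55, 4.36, 4.204 and 10.9 CPM in untreated livers. Ccl6's log2 change was 1.92 ± 0.31 (SE; edgeR, adjusted p = 0.000234). Ccl9, another myeloid chemokine, had 22.8, 31.7 and 37.6 CPM in Smyd3-ASO livers, against 53.96, 43.7, 48.9, 46.7 and 56.9 CPM in untreated livers, a log2 change of -0.73 ± 0.15 (SE; edgeR, adjusted p = 0.00148) that was 0.17 on library totals. Ccl2, the chief attractant of monocytes, had 1.68, 3.02 and 10.3 CPM in Smyd3-ASO livers, against 0.429, 0.237, 0.156, 0 and 0.935 CPM in untreated livers, a log2 change of 3.67 ± 0.74 (SE; edgeR, adjusted p = 0.00149), and 4.35 without untreated mouse 5. Ccl4 had 0.561, 1.205 and 2.702 CPM in Smyd3-ASO livers, against 0, 0.118, 0.156, 0.435 and 0.134 CPM in untreated livers, a log2 change of 3.16 ± 0.69 (SE; edgeR, adjusted p = 0.00203), and 3.84 without untreated mouse 4.

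Antigen presentation genes were 9 higher and 4 lower of 22, the 4 being Tapbp at -1.77, H2-T23 at -0.68, Cd74 at -1.32 and B2m at -0.53, of which H2-T23 was at 0.25 and B2m at 0.35 on library totals. Among all genes, 24.4% were higher and 23.2% lower. On library totals 17 of the 22 were higher and 1 lower. B2m, the light chain of class I molecules, lost its call without untreated mouse 1 (adjusted p = 0.0509). Tapbp, tapasin, which loads class I molecules, had 40.9, 52.7 and 59.4 CPM in Smyd3-ASO livers, against 172, 180.1, 151, 168 and 187 CPM in untreated livers, a log2 change of -1.77 ± 0.13 (SE; edgeR, adjusted p = 7.82e-07); it overlaps Zbtb22. H2-DMb1, of the class II loading complex, had 4.95, 8.22 and 19.05 CPM in Smyd3-ASO livers, against 1.39, 1.66, 1.09, 1.59 and 2.27 CPM in untreated livers. H2-DMb1's log2 change was 2.73 ± 0.42 (SE; edgeR, adjusted p = 0.000188). Ctss, a lysosomal protease of class II processing, had 42.4, 53.5 and 64.1 CPM in Smyd3-ASO livers, against 22.2, 15.7, 21.01, 25.9 and 33.7 CPM in untreated livers. Ctss's log2 change was 1.14 ± 0.19 (SE; edgeR, adjusted p = 0.00034). Tap2, the peptide pump of class I, had 13.6, 29.8 and 46.2 CPM in Smyd3-ASO livers, against 14.7, 6.86, 11.7, 12.5 and 9.88 CPM in untreated livers. Tap2's log2 change was 1.44 ± 0.29 (SE; edgeR, adjusted p = 0.00132).

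Among markers of Kupffer cells and macrophages more rose than fell. Of 22 such markers, 11 rose and 6 fell, beside 24.4% higher and 23.2% lower of all genes. Their summed levels were 486 to 789 CPM in Smyd3-ASO and 369.5 to 652 CPM in untreated livers. Lyz2, lysozyme of myeloid cells, had 62.9, 84.3 and 111 CPM in Smyd3-ASO livers, against 26.5, 18.7, 26.8, 20.4 and 28.04 CPM in untreated livers. Lyz2's log2 change was 1.83 ± 0.18 (SE; edgeR, adjusted p = 5.1e-06). Csf1r, the receptor that macrophages live on, had 9.67, 16.4 and 19.2 CPM in Smyd3-ASO livers, against 58.9, 43.2, 38.7, 43.5 and 65.7 CPM in untreated livers, a log2 change of -1.73 ± 0.20 (SE; edgeR, adjusted p = 1.55e-05); it overlaps Hmgxb3 on the other strand. Gpnmb, a glycoprotein of lipid-laden macrophages, had 368 counts summed over the Smyd3-ASO mice and 0 over the untreated mice, at least 44.0-fold higher against a floor of 3 counts over the group. Clec4f, Cd163 and Timd4 were picked from the 6 that fell, after their values were seen. They do not stand for the list, in which 11 rose and the ranges of the summed levels overlapped. These genes mark resident Kupffer cells. Clec4f, a lectin of these cells, had 5.71, 8.98 and 16.96 CPM in Smyd3-ASO livers, against 26.9, 20.1, 22.9, 23.9 and 33.4 CPM in untreated livers. Clec4f's log2 change was -1.38 ± 0.25 (SE; edgeR, adjusted p = 0.000626). Cd163, the haemoglobin scavenger receptor, had 0.126, 1.08 and 3.71 CPM in Smyd3-ASO livers, against 10.8, 9.47, 7.78, 10.002 and 17.6 CPM in untreated livers. Cd163's log2 change was -2.75 ± 0.59 (SE; edgeR, adjusted p = 0.00247). Timd4, a receptor for dying cells, had 0.1202, 0.449 and 3.01 CPM in Smyd3-ASO livers, against 2.25, 2.96, 4.201, 2.899 and 4.67 CPM in untreated livers, a log2 change of -1.95 ± 0.63 (SE; edgeR, adjusted p = 0.0215) that was -3.03 without Smyd3-ASO mouse 4. Its call was lost without a filter (adjusted p = 0.0685), with thinned counts (adjusted p = 0.129) and without Smyd3-ASO mouse 3 and untreated mouse 5 (adjusted p = 0.0846).

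Of 17 neutrophil and dendritic cell markers, 10 passed the filter on low counts, some of them only through the groups in which they were high, so no balance of rises and falls is given. The summed level of all 17 was 32.3 to 158 CPM in Smyd3-ASO and 15.5 to 51.9 CPM in untreated livers, in which untreated mouse 5 was the highest. Elane, neutrophil elastase, had 14.1, 48.96 and 58.7 CPM in Smyd3-ASO livers, against 11.6, 8.403, 14.8, 8.697 and 14.02 CPM in untreated livers, with mouse 6 within the untreated range and a log2 change of 1.87 ± 0.31 (SE; edgeR, adjusted p = 0.000386). Itgax, the dendritic cell integrin CD11c, had 0.865, 1.47 and 2.17 CPM in Smyd3-ASO livers, against 0.536, 0.118, 0.311, 0.145 and 0.134 CPM in untreated livers. Itgax's log2 change was 2.48 ± 0.45 (SE; edgeR, adjusted p = 0.000551). Csf3r, the receptor for granulocyte growth factor, had 1.39, 2.795 and 3.297 CPM in Smyd3-ASO livers, against 0.107, 0.947, 0, 0 and 0.534 CPM in untreated livers, a log2 change of 2.91 ± 0.60 (SE; edgeR, adjusted p = 0.00133) that was 3.88 without untreated mouse 2. Batf3, a factor of dendritic cells, had 0.601, 0.9401 and 1.37 CPM in Smyd3-ASO livers, against 0.215, 0.118, 0.467, 0.2899 and 0.267 CPM in untreated livers, a log2 change of 1.84 ± 0.43 (SE; edgeR, adjusted p = 0.00324), lost with thinned counts (adjusted p = 0.0691). 9 of 24 lymphocyte markers passed the filter in the same way, and all 24 had summed levels of 37.3 to 67.9 CPM in Smyd3-ASO and 23.2 to 30.8 CPM in untreated livers. Jchain, the joining chain of plasma cell antibodies, had 1.59, 3.997 and 8.48 CPM in Smyd3-ASO livers, against 0.644, 0.237, 0.622, 0.5798 and 0 CPM in untreated livers. Jchain's log2 change was 3.54 ± 0.58 (SE; edgeR, adjusted p = 0.000271). Cd4, also on macrophages, had 10.6, 16.5 and 24.6 CPM in Smyd3-ASO livers, against 4.398, 8.52, 7.31, 6.23 and 8.81 CPM in untreated livers. Cd4's log2 change was 1.20 ± 0.24 (SE; edgeR, adjusted p = 0.00117). Gzma, a granzyme of killer cells, had 0.374, 1.199 and 4.69 CPM in Smyd3-ASO livers, against 0.429, 0.473, 0.156, 0.2899 and 0.401 CPM in untreated livers, a log2 change of 2.15 ± 0.66 (SE; edgeR, adjusted p = 0.0162) that was 1.42 without Smyd3-ASO mouse 4 and lost its call with voom (adjusted p = 0.118). Igkc, an antibody light chain, had a log2 change of 0.82 ± 0.30 (SE; edgeR, adjusted p = 0.0374), lost without any 1 of Smyd3-ASO mice 2, 5 and 6 and untreated mice 1, 2, 4 and 5 (adjusted p of up to 0.0945).

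Markers of the vessel wall and matrix fell more often than they rose, a balance that turned on library totals. Among all genes, 24.4% were higher and 23.2% lower. Of 18 markers of sinusoidal endothelium, 8 fell and 5 rose, Mrc1 at 1.02, Cdh5 at 0.78, Gpr182 at 2.32, Egfl7 at 0.75 and Lyve1 at 0.48, and on library totals 5 were lower and 9 higher. Dnase1l3, a secreted DNase, had 11.9, 13.6 and 19.9 CPM in Smyd3-ASO livers, against 99.7, 97.2, 66.6, 89.1 and 79.2 CPM in untreated livers. Dnase1l3's log2 change was -2.59 ± 0.17 (SE; edgeR, adjusted p = 2.19e-07). Pecam1, the junction protein CD31, had 6.98, 11.3 and 21.6 CPM in Smyd3-ASO livers, against 53.7, 46.2, 37.2, 54.5 and 46.2 CPM in untreated livers. Pecam1's log2 change was -1.95 ± 0.24 (SE; edgeR, adjusted p = 2.54e-05). Fcgr2b, which clears immune complexes, had 9.37, 11.1 and 15.2 CPM in Smyd3-ASO livers, against 38.1, 31.96, 30.97, 41.2 and 29.4 CPM in untreated livers. Fcgr2b's log2 change was -1.58 ± 0.16 (SE; edgeR, adjusted p = 6.75e-06). Clec4g, a sinusoidal lectin, had 22.8, 25.8 and 37.9 CPM in Smyd3-ASO livers, against 78.4, 85.9, 45.1, 101.9 and 82.8 CPM in untreated livers. Clec4g's log2 change was -1.48 ± 0.20 (SE; edgeR, adjusted p = 6.75e-05). Groups did not overlap for these 4 genes. Of 33 matrix and fibrosis genes, 15 fell and 7 rose, whereas on library totals 1 was lower and 14 higher. Sparc, a matrix glycoprotein, had 26.1, 44.2 and 56.4 CPM in Smyd3-ASO livers, against 139, 144, 100.7, 181 and 83.1 CPM in untreated livers. Sparc's log2 change was -1.62 ± 0.23 (SE; edgeR, adjusted p = 9.55e-05). Mmp12, the macrophage elastase, had 1.03, 3.02 and 9.31 CPM in Smyd3-ASO livers, against 0.107, 0, 0.156, 0 and 0 CPM in untreated livers, a log2 change of 6.08 ± 0.92 (SE; edgeR, adjusted p = 0.000183), and 6.70 without untreated mouse 3, from 481 counts in Smyd3-ASO and 2 in untreated mice, a ratio of 86.3 (exact Poisson 95% interval 23.8 to 715). Timp3, a tissue inhibitor of metalloproteases, rose by 1.11 ± 0.19, and Col18a1, the collagen that yields endostatin, fell by 0.88 ± 0.14 and was at 0.01 on library totals.

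Of 13 stellate cell markers, 4 rose, Rgs5 at 2.14, Pdgfrb at 0.81, Des at 0.86 and Hgf at 0.95, and 6 fell. Among all genes, 24.4% were higher and 23.2% lower. On library totals 8 of the 13 were higher and 1 lower. Ngfr, a neurotrophin receptor of stellate cells, had 0.601, 1.82 and 2.54 CPM in Smyd3-ASO livers, against 8.69, 10.9, 7.16, 7.97 and 6.14 CPM in untreated livers. Ngfr's log2 change was -2.23 ± 0.30 (SE; edgeR, adjusted p = 6.2e-05). Pdgfrb lost its call without any 1 of untreated mice 3 and 5 (adjusted p of up to 0.055), Des without any 1 of untreated mice 2, 3 and 4 (adjusted p of up to 0.0597) and Hgf without any 1 of Smyd3-ASO mice 1, 2, 3 and 4 and untreated mice 1, 2, 4 and 5 (adjusted p of up to 0.114). Ecm1 and Angptl6, both secreted, fell, with log2 changes of -1.03 ± 0.13 and -1.18 ± 0.17 (SE), and -0.13 and -0.31 on library totals, and both overlap other genes. Of 18 bile duct and progenitor markers, 13 passed the filter. Those that rose were Sox9 at 2.16, Tspan8 at 5.48, Spp1 at 1.10, Bicc1 at 0.85 and Prom1 at 1.30, and Onecut1 was among those that fell, at -2.53. Sox9, a factor of duct and progenitor cells, had 9.85, 20.98 and 43.1 CPM in Smyd3-ASO livers, against 3.43, 7.22, 5.13, 3.91 and 7.08 CPM in untreated livers. Sox9's log2 change was 2.16 ± 0.39 (SE; edgeR, adjusted p = 0.000685). Onecut1, the factor HNF6, which hepatocytes also express, had 1.86, 5.06 and 9.59 CPM in Smyd3-ASO livers, against 23.2, 22.8, 48.1, 16.8 and 37.9 CPM in untreated livers. Onecut1's log2 change was -2.53 ± 0.37 (SE; edgeR, adjusted p = 0.000154). Spp1, osteopontin, had 18.7, 26.1 and 46.5 CPM in Smyd3-ASO livers, against 9.87, 11.7, 8.56, 14.1 and 21.8 CPM in untreated livers. Spp1's log2 change was 1.10 ± 0.28 (SE; edgeR, adjusted p = 0.00518). Prom1 lost its call without any 1 of Smyd3-ASO mice 1, 2, 5 and 6 and untreated mice 1, 2, 3 and 5 (adjusted p of up to 0.0915). Of 20 markers of fat, muscle and pancreas, 8 passed the filter. Cfd was the 1 that rose, and Cela2a at -2.10 and Cela1 at -0.93 fell.

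Clock genes passed no more often than all genes (47.6%), and the hours of harvest are not given in the sources used here. Of 19 measured, 2 rose, Arntl at 3.27 and Rora at 0.68, and 6 fell, and on library totals 9 were higher and 0 lower. Arntl, the clock activator BMAL1, had 1.89, 6.304 and 12.3 CPM in Smyd3-ASO livers, against 0.536, 0.237, 0.467, 0.145 and 1.602 CPM in untreated livers, a log2 change of 3.27 ± 0.63 (SE; edgeR, adjusted p = 0.00105) and 4.02 without untreated mouse 5. Nr1d1, the repressor REV-ERB alpha, had 4.22, 12.1 and 14.3 CPM in Smyd3-ASO livers, against 28.97, 34.1, 38.1, 28.8 and 12.7 CPM in untreated livers, a log2 change of -1.36 ± 0.31 (SE; edgeR, adjusted p = 0.00276); it overlaps Thra on the other strand. Per2, a repressor of the loop, had 5.28, 9.23 and 16.04 CPM in Smyd3-ASO livers, against 32.7, 26.04, 25.1, 16.2 and 12.7 CPM in untreated livers. Per2's log2 change was -1.18 ± 0.31 (SE; edgeR, adjusted p = 0.00663). Hlf, an output factor, had 17.1, 20.6 and 28.1 CPM in Smyd3-ASO livers, against 40.4, 37.99, 45.4, 35.2 and 24.2 CPM in untreated livers, a log2 change of -0.82 ± 0.17 (SE; edgeR, adjusted p = 0.0017) that was 0.09 on library totals. DEN-P133 livers were at 8.202 to 23.3 CPM for Arntl and 1.05 to 1.89 CPM for Nr1d1.

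Genes of division passed less often than the 47.6% of all genes, a difference that was not tested. Of 36 cell cycle and replication genes, 2 rose, Ccnd1 at 1.53 and Mcm4 at 1.07, and 4 fell, Tk1 at -3.02, Tyms at -2.27, Mcm2 at -1.17 and Cdc20 at -1.41, whereas on library totals 15 were higher and 2 lower. Tk1, thymidine kinase, had 3.41, 5.44 and 8.98 CPM in Smyd3-ASO livers, against 56.97, 40.95, 40.8, 57.5 and 30.8 CPM in untreated livers, a log2 change of -3.02 ± 0.25 (SE; edgeR, adjusted p = 1.28e-06); it overlaps Afmid on the other strand. Tyms, thymidylate synthase, had 34.4, 52.4 and 89.3 CPM in Smyd3-ASO livers, against 248, 232, 272, 408 and 169.99 CPM in untreated livers. Tyms's log2 change was -2.27 ± 0.25 (SE; edgeR, adjusted p = 1.32e-05). Both were lower in all 6 Smyd3-ASO mice than in any untreated mouse. Mcm4, of the replicative helicase, had 4.74, 7.302 and 10.1 CPM in Smyd3-ASO livers, against 2.04, 1.89, 3.73, 3.04 and 6.54 CPM in untreated livers. Mcm4's log2 change was 1.07 ± 0.31 (SE; edgeR, adjusted p = 0.0128). Mcm2, another subunit, lost its call without untreated mouse 5 (log2 change -0.68, adjusted p = 0.0741), and Cdc20, a mitotic activator, without any 1 of Smyd3-ASO mouse 4 and untreated mice 1, 2, 4 and 5 (adjusted p of up to 0.0694).

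Among subunits of one machine some rose and some fell, beside 24.4% higher and 23.2% lower of all genes, and the balance depended on the scaling. Of 45 cytosolic ribosomal protein genes, 16 rose and 5 fell, Rpl18 at -0.97, Rpl37 at -1.29, Rpl15 at -0.70, Rps16 at -0.50 and Rpl22 at -0.34, and 40 were higher and 0 lower on library totals. Rplp2, a stalk protein, had 814, 1345 and 1653 CPM in Smyd3-ASO livers, against 371, 317, 325, 271 and 364 CPM in untreated livers. Rplp2's log2 change was 1.94 ± 0.20 (SE; edgeR, adjusted p = 8.57e-06). Rps9, of the small subunit, had 328, 498 and 725 CPM in Smyd3-ASO livers, against 193, 242, 216, 203 and 296 CPM in untreated livers. Rps9's log2 change was 1.14 ± 0.20 (SE; edgeR, adjusted p = 0.000502). Rpl18 and Rpl37, of the large subunit, fell, with log2 changes of -0.97 ± 0.15 and -1.29 ± 0.23 (SE), and -0.10 and -0.40 on library totals. Rpl15, Rps16 and Rpl22 were at 0.19, 0.40 and 0.56 on library totals, and Rpl22 lost its call without any 1 of Smyd3-ASO mice 1, 3, 4 and 5 and untreated mice 1 and 4 (adjusted p of up to 0.0759). Of 40 nuclear genes of oxidative phosphorylation, 16 fell and 3 rose, Ndufb3 at 1.96, Cox7c at 1.24 and Uqcrfs1 at 0.74, but on library totals 1 was lower and 24 higher. Ndufv1 and Ndufb3 both belong to complex I. Ndufv1 had 111, 132 and 154 CPM in Smyd3-ASO livers, against 421, 452, 379, 372 and 275 CPM in untreated livers. Ndufv1's log2 change was -1.54 ± 0.16 (SE; edgeR, adjusted p = 8.83e-06). Ndufb3 had 338, 619 and 781 CPM in Smyd3-ASO livers, against 156, 137, 167, 162 and 129.5 CPM in untreated livers, a log2 change of 1.96 ± 0.21 (SE; edgeR, adjusted p = 1.05e-05), against 0.03 ± 0.14 (SE), not past the threshold, in control-ASO livers. Cyc1, of complex III, fell by 1.09 ± 0.14, and its change was -0.19 on library totals, and Cox7c, of complex IV, rose by 1.24 ± 0.19. Rplp2, Rpl37 and Cox7c share their position with small RNA genes, and Rpl18 overlaps Sphk2. Among 15 common reference genes, 2 rose, Pgk1 at 1.20 and Rplp0 at 0.74, and 4 fell, among them Gapdh at -1.46, Actb at -1.11 and B2m at -0.53, with a median of -0.07, and on library totals 9 were higher and 1 lower.

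Acute phase genes followed single mice. Of 20 measured, 1 rose, Il1rn at 4.62, and 3 fell, Hamp2 at -5.05, Cp at -0.98 and Apcs at -2.94, and without Smyd3-ASO mouse 3 and untreated mouse 5 the counts were 3 and 1. Library totals gave 4 higher and 1 lower. Among all genes, 24.4% were higher and 23.2% lower under TMM. Il1rn, the interleukin 1 receptor antagonist, had 5.55, 25.2 and 188 CPM in Smyd3-ASO livers, against 2.897, 0.947, 1.09, 1.45 and 3.87 CPM in untreated livers, a log2 change of 4.62 ± 1.00 (SE; edgeR, adjusted p = 0.00374) and 3.52 without Smyd3-ASO mouse 3. Hamp2, a hepcidin copy near Hamp, had 3.41, 5.26 and 14.8 CPM in Smyd3-ASO livers, against 755, 142, 30.8, 226 and 14.3 CPM in untreated livers, overlapping groups. Its log2 change was -5.05 ± 0.98 (SE; edgeR, adjusted p = 0.00199), and -3.87 without untreated mouse 1. Apcs lost its call without any 1 of Smyd3-ASO mice 1, 2, 5 and 6 and untreated mouse 5 (adjusted p of up to 0.144) and Cp without any 1 of Smyd3-ASO mice 1 and 2 and untreated mouse 5 (adjusted p of up to 0.0814).

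The 10 largest rises among genes with log2 CPM averaging 2 or more included Egr1 and 9 others. Cfd, adipsin, a complement protease chiefly of fat cells, had 1.25, 23.6 and 102.4 CPM in Smyd3-ASO livers, against 0, 0, 0.156, 0 and 0 CPM in untreated livers. With 1 count in all untreated mice against 3056 in the Smyd3-ASO mice, the ratio of counts per total was 1097, with an exact Poisson 95% interval of 197 to 43336 that covers counting error only. Its call was lost with voom (log2 change 7.48, adjusted p = 0.116), and DEN-P133 livers were at 3.78 to 26.03 CPM. Cidea, a lipid droplet protein, had 697 counts in Smyd3-ASO mice and 3 in untreated mice, a ratio of 83.4 (interval 28.4 to 405), with levels of 0.873, 4.13 and 26.6 CPM in Smyd3-ASO livers, against 0, 0.237, 0.156, 0 and 0 CPM in untreated livers. Its call was lost with voom (log2 change 5.03, adjusted p = 0.071). Mice 1, 2 and 6 were the highest of the 6 for Cfd and Cidea, which had fitted log2 changes of 9.28 and 5.64 without mouse 6, and of the fat cell markers in the list Plin1 was at 0.233 to 2.99 CPM and Adipoq at 0 to 2.12 CPM in Smyd3-ASO livers, against 0 to 0.668 and 0 to 0.311 CPM in untreated livers, neither past the threshold.

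Sult1e1, oestrogen sulfotransferase, had 2.62, 16.5 and 32.3 CPM in Smyd3-ASO livers, against 0.107, 0.237, 0.311, 0 and 0.668 CPM in untreated livers, a log2 change of 5.96 ± 1.06 (SE; edgeR, adjusted p = 0.00103) and 6.62 without untreated mouse 5. Ubd, the ubiquitin-like protein FAT10, had 1.12, 11.4 and 31.1 CPM in Smyd3-ASO livers, against 0.536, 0, 0.156, 0.2899 and 0.534 CPM in untreated livers, a log2 change of 5.42 ± 1.32 (SE; edgeR, adjusted p = 0.00662), lost with voom (log2 change 4.38, adjusted p = 0.147). For both, mice 1, 2 and 6 were again the highest. Cxcl1, a neutrophil chemokine, had 17.7, 183 and 1952 CPM in Smyd3-ASO livers, against 3.75, 3.91, 3.58, 5.798 and 10.1 CPM in untreated livers, with mouse 3 the highest, a log2 change of 6.47 ± 1.36 (SE; edgeR, adjusted p = 0.00316) and 5.14 without that mouse. Cyp21a1, the steroid 21-hydroxylase, had 0.757, 2.06 and 53.8 CPM in Smyd3-ASO livers, against 0.322, 0.237, 0.622, 0 and 0.134 CPM in untreated livers, again highest in mouse 3, a log2 change of 5.34 ± 1.59 (SE; edgeR, adjusted p = 0.0185) and 3.13 without it. It did not pass with voom (log2 change 3.84, adjusted p = 0.118), and DEN-P133 livers were at 3.73 to 5.05 CPM. Bst2, the antiviral tether tetherin, had 36.4, 345 and 490.5 CPM in Smyd3-ASO livers, against 25.96, 1.89, 2.49, 5.07 and 1.602 CPM in untreated livers, a log2 change of 5.38 ± 0.98 (SE; edgeR, adjusted p = 0.00128) and 6.83 without untreated mouse 1. Cd300ld, a myeloid receptor, had 5.46, 7.59 and 10.9 CPM in Smyd3-ASO livers, against 0.107, 0.118, 0.156, 0.2899 and 0.267 CPM in untreated livers. Cd300ld's log2 change was 5.34 ± 0.33 (SE; edgeR, adjusted p = 1.62e-07). Mir3092, a microRNA gene inside Fndc3b whose counts may be reads of its host, had 2.78, 12.98 and 80.4 CPM in Smyd3-ASO livers, against 0.107, 0.118, 0.622, 0.145 and 0.134 CPM in untreated livers, a log2 change of 6.92 ± 1.14 (SE; edgeR, adjusted p = 0.000674), 6.18 without Smyd3-ASO mouse 3 and 7.64 without untreated mouse 3.

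Among the 10 largest falls were Hamp2, Serpina3c and Serpina1b, given above. Ctse, the aspartic protease cathepsin E, had 0, 0.164 and 0.427 CPM in Smyd3-ASO livers, against 15.2, 13.1, 14.8, 20.9 and 8.01 CPM in untreated livers, a log2 change of -6.25 ± 0.52 (SE; edgeR, adjusted p = 2.47e-06) and -6.88 without Smyd3-ASO mouse 2. Cyp46a1, a cholesterol hydroxylase chiefly of brain, had 0.221, 0.424 and 0.884 CPM in Smyd3-ASO livers, against 1.29, 0.7101, 0.778, 38.8 and 8.81 CPM in untreated livers, and the fall rested on untreated mice 4 and 5. Its log2 change was -4.45 ± 1.09 (SE; edgeR, adjusted p = 0.00685), and -2.63 without untreated mouse 4. Nrep, a gene of regenerating tissue, had 1.64, 3.52 and 9.85 CPM in Smyd3-ASO livers, against 84.2, 60.7, 73.6, 74.1 and 15.8 CPM in untreated livers. Nrep's log2 change was -4.01 ± 0.54 (SE; edgeR, adjusted p = 0.000136). Plag1, a zinc finger transcription factor, had 1.08, 3.22 and 7.79 CPM in Smyd3-ASO livers, against 46.8, 48.999, 69.9, 41.2 and 60.1 CPM in untreated livers. Plag1's log2 change was -3.96 ± 0.40 (SE; edgeR, adjusted p = 1.42e-05). For Ctse, Nrep and Plag1 the groups lay far apart, and untreated mouse 5 was the lowest of its group for Ctse and Nrep. C1s2, a copy of a complement C1 protease, had 0, 0.329 and 4.68 CPM in Smyd3-ASO livers, against 22.2, 16.7, 14.9, 7.68 and 14.8 CPM in untreated livers, a log2 change of -3.90 ± 0.81 (SE; edgeR, adjusted p = 0.00256) and -5.54 without Smyd3-ASO mouse 5. Tnfsf10, the death ligand TRAIL, had 1.202, 1.402 and 2.18 CPM in Smyd3-ASO livers, against 18.2, 20.7, 17.7, 25.8 and 13.5 CPM in untreated livers. Tnfsf10's log2 change was -3.65 ± 0.21 (SE; edgeR, adjusted p = 1.43e-07). Clp1, an RNA kinase of tRNA and mRNA processing, had 15.2, 32.9 and 53.3 CPM in Smyd3-ASO livers, against 604, 364, 163, 285 and 521 CPM in untreated livers. Clp1's log2 change was -3.63 ± 0.41 (SE; edgeR, adjusted p = 3.06e-05).

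Some genes set Smyd3-ASO livers apart from untreated and from control-ASO livers in the same direction. At the same threshold these were 1228 genes higher and 970 lower, a count that the shared Smyd3-ASO mice enter on both sides. The 6 largest rises were Cfd, Sult1e1, Ubd, Bst2, Cd300ld and Gsta1, and the 6 largest falls Ctse, Serpina3c, Cyp46a1, Serpina1b, C1s2 and Tnfsf10. Gsta1, a glutathione transferase with close copies, had 10.04, 91.8 and 226 CPM in Smyd3-ASO livers, against 2.36, 5.68, 4.82, 5.36 and 0.935 CPM in untreated livers, with mice 1, 2 and 6 the highest, and a log2 change of 4.74 ± 1.02 (SE; edgeR, adjusted p = 0.00342); control-ASO livers were at 2.89 to 9.05 CPM. For several of these genes DEN-P133 livers, which had neither ASO, lay close to Smyd3-ASO livers. Ctse was at 0 to 0.508 CPM in DEN-P133 and 4.73 to 14.6 CPM in control-ASO livers, beside 0, 0.164 and 0.427 CPM in Smyd3-ASO livers. C1s2 was at 0 to 0.2102 CPM in DEN-P133 and 15.2 to 22.4 CPM in control-ASO livers. Serpina3c was at 14.9 to 19.9 CPM in DEN-P133 and 45.9 to 117 CPM in control-ASO livers. Tnfsf10 was at 2.52 to 3.77 CPM in DEN-P133 and 8.37 to 19.5 CPM in control-ASO livers. Cd300ld was at 3.47 to 5.76 CPM in DEN-P133 and 0.141 to 3.24 CPM in control-ASO livers. In DEN-P133 livers Sult1e1, at 0.473 to 2.03 CPM, was below every Smyd3-ASO mouse, and Ubd, at 0.665 to 1.89 CPM, overlapped the lowest of them. The labels name the strain as C57Bl6 and give no substrain, colony or batch, and whether any of these moved with such genes was not tested.

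**Figure D5:**
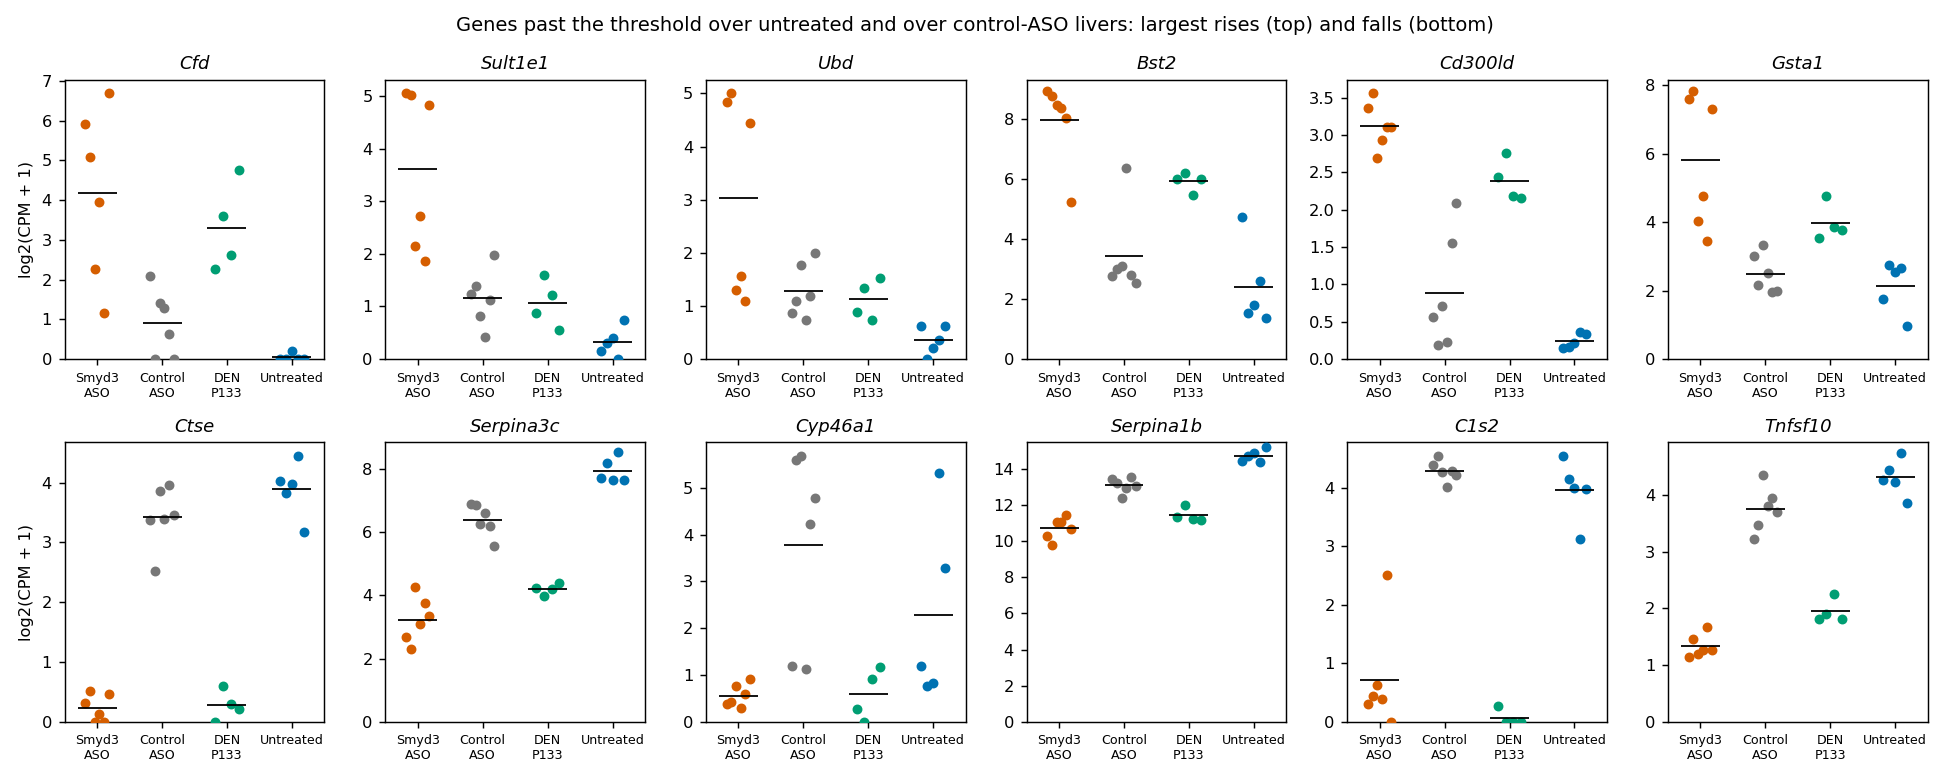
Levels, as log2(CPM + 1), of the 6 largest rises (top) and 6 largest falls (bottom) past the threshold in both Smyd3-ASO over untreated and Smyd3-ASO over control-ASO livers, 1 point per mouse, with a bar at the mean of each group. DEN-P133 livers lie near Smyd3-ASO livers for Ctse, C1s2, Serpina3c, Serpina1b, Tnfsf10 and Cd300ld and below most of them for Sult1e1 and Ubd.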

How the data were processed

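RNA of liver from single mice was sequenced from its 3′ ends with QuantSeq. Per the submitters' processing notes, reads were aligned with HISAT2 2.1.0 to mm10 and DESeq was used; the read counter, its strand setting and its annotation are not given in the sources used here. The authors deposited raw counts per Ensembl gene and mouse, in which per the file headers repeat libraries of 5 of the 6 Smyd3-ASO and all 6 control-ASO mice were merged. They also deposited scores, the counts divided by a size factor per mouse and rounded, used here only as an alternative.

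All 55413 gene identifiers matched GENCODE mouse release 21, which gave symbols, overlaps and coordinates (GRCm38). Genes with enough counts in at least 1 group (edgeR's filterByExpr, 15297 genes) were fitted with edgeR 4.0.16 in R 4.3.3: TMM scaling, robust quasi-likelihood, each comparison on its own groups, with p-values adjusted by Benjamini-Hochberg over all genes tested. The SE is the log2 change divided by the square root of the F statistic. CPM were TMM-scaled over 21 mice. Alternatives used DESeq2 1.42.0 and limma 3.58.1 (voom and trend). The fit was also run on simulated counts in which few genes changed, equally often up and down. Such a run cannot check the scaling of data in which 47.6% of genes passed.

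The mice are labelled as separate biological replicates. The gene lists and the genes described were chosen with earlier results of these data known. Described genes are Smyd3, the given markers Egr1, Gdf15, Hbb-bs and Serpina1b, for each list the 4 members with the smallest adjusted p, the 10 largest rises and falls with log2 CPM averaging 2 or more, and the 6 largest each way that also passed over control-ASO livers; others were named after their values were seen. Some genes that this choice takes in are not reported here. Counting intervals cover counting error only, as no molecular identifiers are given.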

Additional observations from a re-analysis of the deposited data

Results flagged for a closer look

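Mice that stood apart within their group are listed here for 157 genes whose levels per mouse were used. A mouse is listed where its gap to the nearest mouse, as a share of the group's whole range of CPM, was above Dixon's 95% critical value. Of 314 groups, 33 held such a mouse. The critical value lets through about 1 in 20 where values are normally distributed. CPM near 0 are not, as with Cfd, which had 1 count over all untreated mice. The genes were also chosen with earlier results known, so the 33 cannot be set against that rate. Among Smyd3-ASO mice, mouse 3 was the highest for Bag3 (gap share 0.629), Cxcl1 (0.725), Cyp21a1 (0.918) and Il1rn (0.745). Smyd3-ASO mouse 3 was the lowest for Nr1d1 (gap share 0.689). Smyd3-ASO mouse 4 was the highest for Gzma (gap share 0.706), Mug2 (0.79) and Timd4 (0.761). Smyd3-ASO mouse 5 was the highest for C1s2 (gap share 0.884), Cyp2c69 (0.841) and Hspb1 (0.739). Smyd3-ASO mouse 6 was the highest for Cyp2c67 (gap share 0.717) and Nrep (0.69). Smyd3-ASO mouse 6 was the lowest for Etv5 (gap share 0.775). Among untreated mice, mouse 1 was the highest for Bst2 (gap share 0.858), Cyp2a4 (0.796), Hamp2 (0.714), Serpina6 (0.891) and Smyd2 (0.799). Untreated mouse 2 was the highest for Egr1 (gap share 0.753). Untreated mouse 3 was the highest for Cfd (gap share 1), Mir3092 (0.927) and Pgk1 (0.764). Untreated mouse 3 was the lowest for Eda2r (gap share 0.74). Untreated mouse 4 was the highest for Cyp46a1 (gap share 0.788). Untreated mouse 5 was the highest for Arntl (gap share 0.731), Cyp51 (0.728), Gbp3 (0.731), Hsp90aa1 (0.921), Saa2 (0.997), Spink1 (0.758) and Vtn (0.931). Untreated mouse 5 was the lowest for Rhbg (gap share 0.842).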

How the results depend on the processing

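The count of genes past the threshold in Smyd3-ASO over untreated livers was 7289, and 6529 to 8102 under median-of-ratios scaling, no filter, DESeq2, voom, 1 fit over 4 groups, thinned counts and the deposited scores, and 6434 to 7502 without any 1 mouse. Library totals moved it most, to 9515 higher and 898 lower. Control-ASO over untreated livers then gave 10708 genes, 10018 higher and 690 lower, and the members of the gene lists were 527 higher and 89 lower, in place of 225 and 273. Only genes given above with a log2 change in Smyd3-ASO over untreated livers were checked singly for a turn to positive on library totals. Those that turned included B2m 0.35, Ccl27a 0.16, Ccl9 0.17, Col18a1 0.0076, Gclm 0.18, H2-T23 0.25, Hlf 0.091 and Klf2 0.31. The others were Pdia6 0.055, Rpl15 0.19, Rpl22 0.56, Rps16 0.40, Sel1l 0.33, Smyd2 0.32, Smyd4 0.28, Smyd5 0.73 and Trp53 0.11. Saa2 ran from -2.92 without Smyd3-ASO mouse 3 to 5.00 without untreated mouse 5. The cause of these turns was not tested.

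The replicate numbers were tried as a block, which leaves out Smyd3-ASO mouse 6, since untreated mice end at number 5. The block gave 6988 genes. Same-numbered mice correlated at -0.100 to 0.112 after group means were removed, and 1 of 5 correlated best with its own number, so the numbers were not taken as pairs. Genes under about 1 CPM rest on few counts per mouse, and the number of mice, not depth alone, limits their precision.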
